A study of Mus musculus with 18 samples.

Results

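Collagens are proteins whose chains carry long runs of glycine, proline and hydroxyproline and wind around each other into a triple helix. Type IV collagens form the sheet-like network of basement membranes, which in brain surround vessels and underlie the pia. Fibrillar collagens form the fibrils themselves, and the remaining classes attach to fibrils or basement membranes, form other networks or span the cell membrane. Brain parenchyma holds little fibrillar collagen, so fibrillar transcripts in a dissected brain region can come from meninges, large vessels or adjoining skull and cartilage.

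Every gene whose symbol reads Col, a number, the letter a and a number was included, which gave 44 of the 54752 genes with RNA values, and all 44 were also among the 22523 genes with footprint values. They comprised 11 fibrillar collagens, 6 type IV collagens, 3 collagens associated with basement membranes (types VII, XV and XVIII), 9 fibril-associated collagens with interrupted triple helices (FACITs), 6 type VI collagens, 3 network-forming collagens (types VIII and X), 4 transmembrane collagens and 2 others (*Col26a1* and *Col28a1*). By general knowledge of their expression, 18 were placed among collagens known from neurons, glia or vessels of the brain (types IV, XV, XVI, XVIII, XIX, XX, XXIII, XXV, XXVI and XXVII, *Col5a3*, *Col9a3* and *Col11a1*) and 26 among those known chiefly from bone, cartilage, tendon, meninges, skin or other connective tissue.

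The cerebellum of 3-week-old mice of 3 genotypes was profiled with 3 poly(A) RNA libraries and 3 ribosome-footprint libraries per genotype, 18 libraries in all. B6J denotes C57BL/6J controls. B6J.*Gtpbp1*-/- mice (below *Gtpbp1*-/-) lack *Gtpbp1* through an allele in which a PGK-Neo cassette replaces part of the gene, made on a mixed background and then backcrossed to C57BL/6J over many generations, and B6J-*Gtpbp2*-/- mice (below *Gtpbp2*-/-) lack *Gtpbp2* through the chemically induced *nmf205* point mutation. All 3 groups, controls included, carry the C57BL/6J mutation in *n-Tr20*, a neuronal arginine tRNA gene. GTPBP1 and GTPBP2 are related GTPases that act on stalled ribosomes. Mice of both sexes were used, and each footprint library came from 1 cerebellum. RNA libraries held 37794333 to 52114145 estimated counts and footprint libraries held 3630823 to 10442573 counts on coding sequence. The labels place all RNA libraries in Batch 1 and all footprint libraries in Batch 2, so assay and batch cannot be told apart.

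*Gtpbp1* and *Gtpbp2* were read first as a check of the labels, in CPM normalized for library composition. *Gtpbp1* stood at 71.0, 77.8 and 66.7 RNA CPM in B6J, 44.0, 41.7 and 43.9 in *Gtpbp1*-/- and 58.6, 72.1 and 65.7 in *Gtpbp2*-/-. In footprints it stood at 73.6, 117 and 84.8 footprint CPM in B6J, 32.0, 25.5 and 35.6 in *Gtpbp1*-/- and 79.3, 66.8 and 62.1 in *Gtpbp2*-/-. All *Gtpbp1*-/- libraries were below all others in both assays. *Gtpbp2* stood at 85.9, 74.0 and 88.1 RNA CPM in B6J, 109, 100.5 and 104 in *Gtpbp1*-/- and 65.5, 75.4 and 72.7 in *Gtpbp2*-/-, and at 44.7, 36.1 and 38.4 footprint CPM in B6J, 36.2, 43.3 and 58.3 in *Gtpbp1*-/- and 28.9, 26.4 and 7.54 in *Gtpbp2*-/-. All *Gtpbp2*-/- footprint libraries lay below all B6J footprint libraries.

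Markers of cerebellar cell types were present in every library. The 9 granule neuron markers, all above 1 CPM in B6J, summed to 7073, 7444 and 7055 RNA CPM in B6J, 4745, 4661 and 5417 in *Gtpbp1*-/- and 4884, 5284 and 4569 in *Gtpbp2*-/-, with *Cbln3* the most abundant. Their footprints summed to 5321, 7879 and 5895 footprint CPM in B6J, 4384, 3295 and 5124 in *Gtpbp1*-/- and 3318, 3106 and 2850.2 in *Gtpbp2*-/-. In RNA, 7 of 9 were called lower in *Gtpbp1*-/- and 6 of 9 in *Gtpbp2*-/-, and in footprints 0 and 7. Of all genes tested, 7.93% and 5.02% were called lower in RNA and 0.172% and 1.67% in footprints. The 7 Purkinje cell markers, led by *Itpr1*, summed to 8281, 9375 and 7032 RNA CPM in B6J, 6799, 6078 and 7839.5 in *Gtpbp1*-/- and 6146, 6979 and 5718 in *Gtpbp2*-/-, with 2 called lower in *Gtpbp1*-/- RNA, 3 called lower in *Gtpbp2*-/- RNA and 0 called in footprints. Their footprints summed to 9768, 6576 and 13413 footprint CPM in B6J, 12550, 13294 and 7368 in *Gtpbp1*-/- and 14808, 15047 and 12420 in *Gtpbp2*-/-. All 7 had a footprint log2FC above 0 in either mutant, with medians of 0.117 and 0.383. Fewer cells of a type and less RNA per cell cannot be told apart in whole tissue.

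The 7 oligodendrocyte markers, led by *Mbp*, summed to 11856, 10452 and 12071 RNA CPM in B6J, 8809.8, 8866 and 7626 in *Gtpbp1*-/- and 12764, 9588 and 10272 in *Gtpbp2*-/-. All 7 were called lower in *Gtpbp1*-/- RNA, 0 in *Gtpbp2*-/- RNA and 0 in footprints of either mutant. Their footprint log2FC was above 0 for 5 in *Gtpbp1*-/- and 7 in *Gtpbp2*-/-, with medians of 0.097 and 0.174. The 8 markers of Bergmann glia and astrocytes, led by *Slc1a3*, summed to 3684, 3937 and 3330.5 RNA CPM in B6J, 3436, 2957 and 3463 in *Gtpbp1*-/- and 3105, 3427 and 3028 in *Gtpbp2*-/-. Among these *Gfap* was called higher in the RNA of both mutants, while 4 and 3 others were called lower. Their footprints summed to 3655, 3969 and 4382 footprint CPM in B6J, 4200, 4415 and 5608 in *Gtpbp1*-/- and 4286, 3861 and 4680 in *Gtpbp2*-/-. In footprints 7 and 5 of the 8 had a log2FC above 0, and 0 were called. Over all genes tested, 5.9% were called higher and 7.93% lower in *Gtpbp1*-/- RNA, and 3.61% and 5.02% in *Gtpbp2*-/- RNA. Footprint shares were 0.573% higher and 0.172% lower in *Gtpbp1*-/-, and 1.28% and 1.67% in *Gtpbp2*-/-.

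Levels in B6J were compared between collagens per length, as TPM for RNA and as footprint CPM per kilobase of coding sequence, each given as mean ± SD over 3 libraries. *Col9a3*, which encodes a chain of the cartilage FACIT type IX and is also transcribed in brain, had the highest RNA level at 53.3 ± 3.18 TPM. *Col18a1*, the basement membrane collagen whose C-terminal fragment is endostatin, followed at 37.3 ± 4.07 TPM, and *Col4a1* at 21.2 ± 1.65 TPM. The type I chain *Col1a2*, at 19.9 ± 4.68 TPM, differed from *Col4a1* by less than its spread. *Col3a1* stood at 12.7 ± 3.59 TPM, the neuronal transmembrane collagen *Col23a1* at 12.2 ± 2.07 and *Col4a2* at 10.2 ± 0.944. The lowest members were *Col10a1*, the collagen of hypertrophic cartilage, at 0.114 ± 0.0417 TPM and the type VI chain *Col6a6* at 0.0711 ± 0.0599 TPM.

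By mean footprint density the type I chains came first, with a wide spread. *Col1a1*, which ranked 12 among the 44 members by TPM (7.42 ± 1.40), had the highest mean at 75.1 ± 48.0 footprint CPM per kilobase. *Col1a2* stood at 65.1 ± 23.6, *Col9a3* at 57.8 ± 12.9 and *Col18a1* at 49.8 ± 9.28 on the same footprint scale. The SD of *Col1a1* was large against its mean, so these 4 could not be ordered. *Col4a1* had 21.9 ± 4.83, *Col23a1* 16.5 ± 5.14, *Col4a2* 16.5 ± 4.42 and *Col3a1* 15.8 ± 6.56 footprint CPM per kilobase. *Col6a4* had 0 footprints in the 3 B6J libraries.

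**Figure D1:**
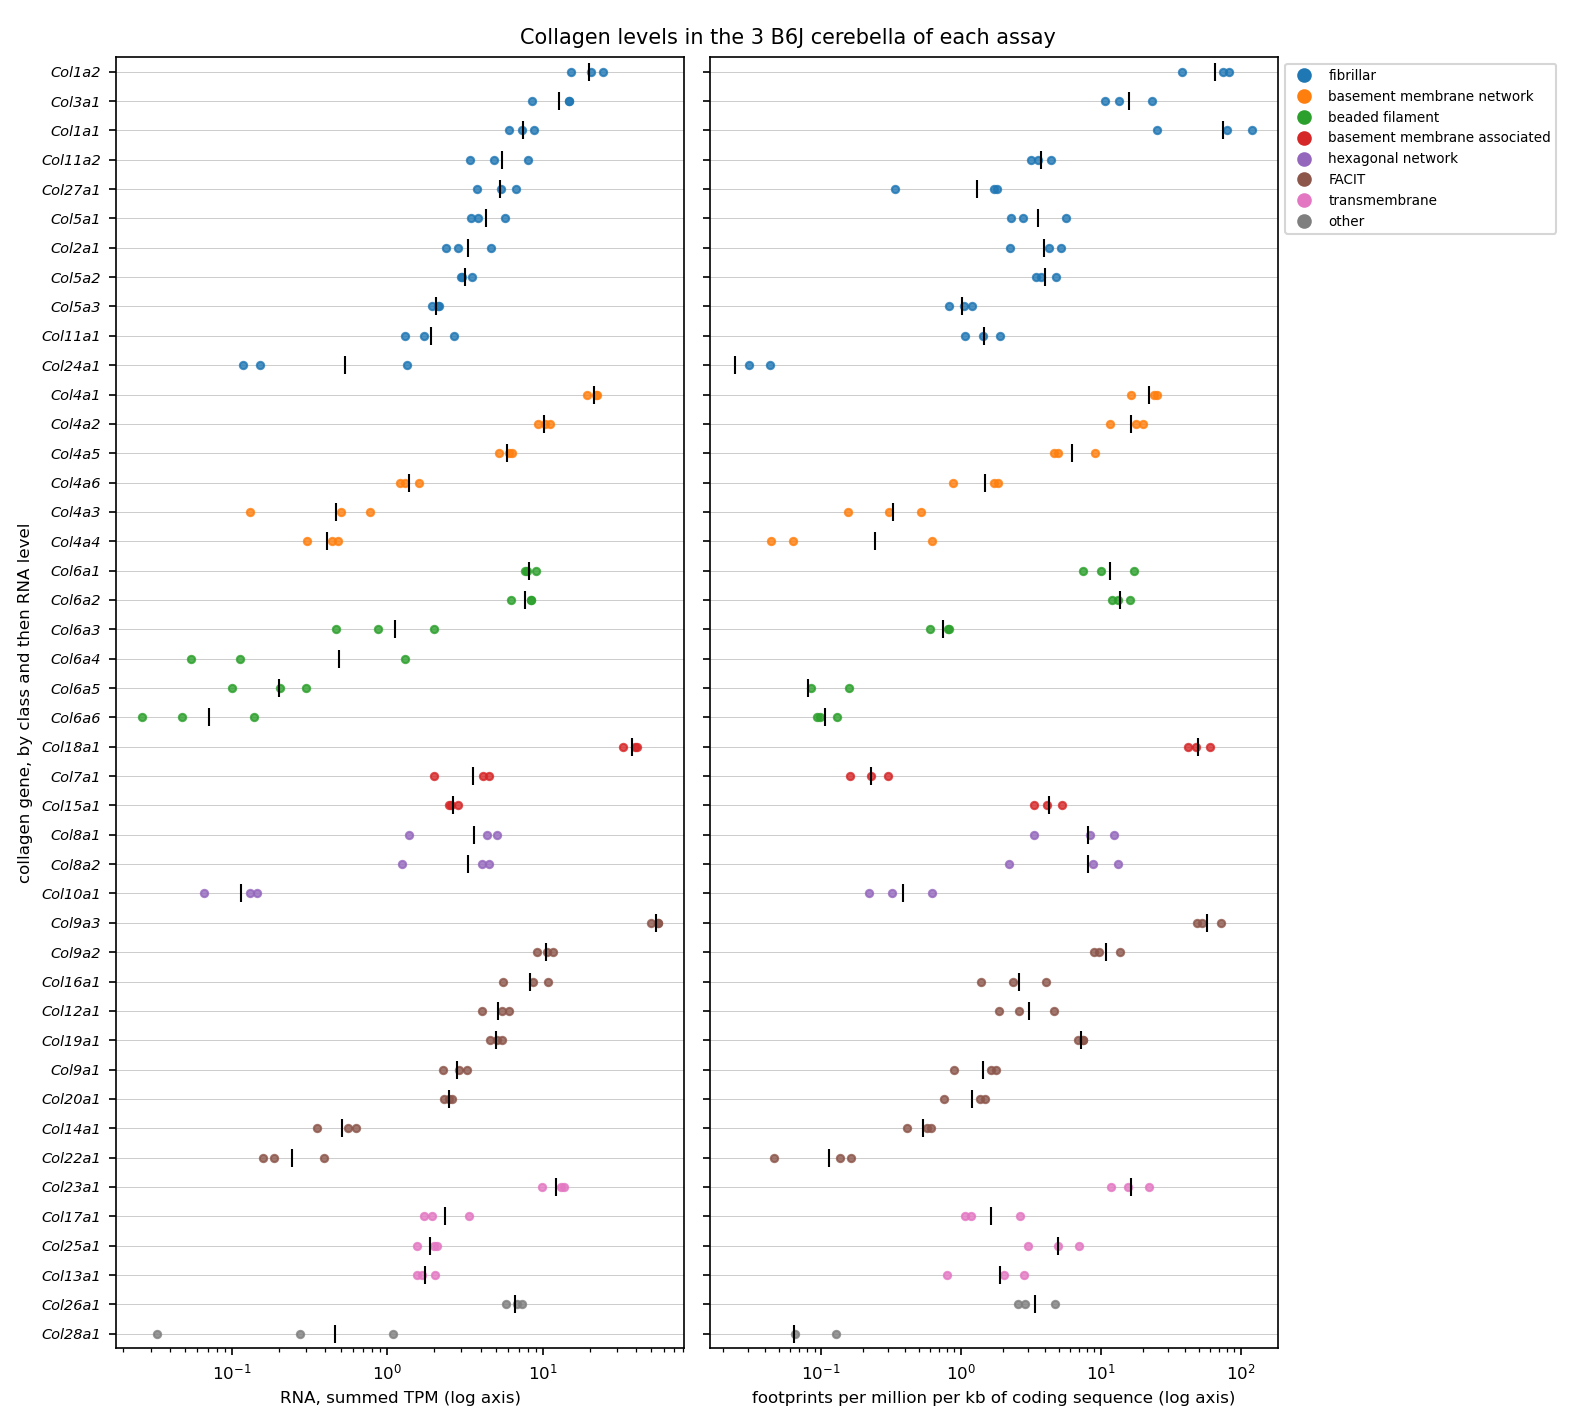
RNA level (left, summed TPM, log axis) and footprint density (right, CPM per kb of coding sequence, log axis) of the 44 collagens in B6J cerebellum, with a point per library, a bar at the mean of 3 and colour for the class; libraries at 0 have no point. *Col9a3* leads in RNA, and *Col1a1*, *Col1a2*, *Col9a3* and *Col18a1* have the highest mean footprint densities.

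Of RNA counts collagens took 0.0825, 0.0793 and 0.0730% in B6J, 0.0969, 0.104 and 0.0884% in *Gtpbp1*-/- and 0.0837, 0.0990 and 0.0928% in *Gtpbp2*-/-, with all mutant libraries above B6J. Of footprint counts collagens took 0.132, 0.185 and 0.186% in B6J, 0.305, 0.312 and 0.433% in *Gtpbp1*-/- and 0.222, 0.312 and 0.173% in *Gtpbp2*-/-, with *Gtpbp1*-/- above all B6J libraries and *Gtpbp2*-/- overlapping. The 18 collagens known from brain summed to 744, 726 and 781 footprint CPM in B6J, 965, 1022 and 1036 in *Gtpbp1*-/- and 1168, 1527 and 933 in *Gtpbp2*-/-. The 26 known from connective tissue summed to 567, 1107 and 1142 footprint CPM in B6J, 2133, 2063 and 3260.1 in *Gtpbp1*-/- and 1007, 1587 and 816 in *Gtpbp2*-/-. Brain collagens thus stood above B6J in all 6 mutant footprint libraries, while connective tissue collagens did so in the 3 *Gtpbp1*-/- libraries and in replicate 2 of *Gtpbp2*-/-.

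In RNA the sums differed less. The brain collagens had 507, 508 and 457 RNA CPM in B6J, 538, 553 and 514 in *Gtpbp1*-/- and 536, 569 and 548 in *Gtpbp2*-/-. Those of connective tissue had 357, 353 and 298 RNA CPM in B6J, 399, 440.4 and 359 in *Gtpbp1*-/- and 287, 396 and 355 in *Gtpbp2*-/-. All mutant libraries were above all B6J libraries for the brain collagens, and the groups overlapped for those of connective tissue in *Gtpbp2*-/-, whose replicate 1 was the lowest of all 9.

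Type I collagen, the heterotrimer of *Col1a1* and *Col1a2* that makes up bone and tendon fibrils, took 9.53 to 13.7% of the collagen RNA counts over the 9 libraries. Of collagen footprints it took 20.4, 35.5 and 45.1% in B6J, 49.7, 43.8 and 60.5% in *Gtpbp1*-/- and 27.5, 30.9 and 26.9% in *Gtpbp2*-/-. The ratio of mean footprint CPM to mean RNA CPM was 10.9 for *Col1a1* and 3.92 for *Col1a2* in B6J, 33.3 and 8.51 in *Gtpbp1*-/-, and 10.7 and 4.67 in *Gtpbp2*-/-. Over the 11969 genes with at least 10 counts in each B6J library, the median ratio was 0.990 and its 5th to 95th percentiles were 0.29 to 2.99. The 33 collagens in that set had a median of 1.51, with 1.47 for the 16 of brain and 1.7 for the 17 of connective tissue. RNA and footprints come from different batches, and 2 of 9 same-numbered RNA and footprint libraries differed in sex, so these ratios compare group means.

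The RNA comparisons ask which collagen transcripts differ in abundance when either GTPase is missing. Each mutant was fitted against B6J with edgeR's quasi-likelihood test, and a gene was called where its adjusted p was at most 0.05. Log2 fold changes (log2FC) carry their standard errors. Both comparisons use the same 3 B6J libraries. In *Gtpbp1*-/-, 13 of 44 collagens were called, 8 higher and 5 lower, where 13.8% of all 24577 genes tested were called (5.9% higher and 7.93% lower). For *Gtpbp2*-/-, 6 of 44 were called, 4 higher and 2 lower, where 8.63% of 24859 genes were called (3.61% higher and 5.02% lower). The median log2FC of the 44 was 0.31 in *Gtpbp1*-/- and 0.14 in *Gtpbp2*-/-, against 0.03 for all genes tested in either comparison. Each call was repeated under alternatives that make no use of replicate numbers (a library left out, a sex term, another tool, normalization or set of counts). Adjusted p under those that ended it is given in parentheses below, with the range over all of them. The counts depended on which libraries were included. Without *Gtpbp1*-/- replicate 1, 2 or 3 the *Gtpbp1*-/- count was 9, 5 or 8, and without B6J replicate 1, 2 or 3 it was 7, 7 or 14. The share of all genes called moved as well, from 8.0% without *Gtpbp1*-/- replicate 2 to 15.8% without B6J replicate 3. These were the fits with 5 and 14 collagens called. The *Gtpbp2*-/- count was 10, 5 or 3 without *Gtpbp2*-/- replicate 1, 2 or 3, and 2, 3 or 8 without B6J replicate 1, 2 or 3. Of all genes, 9.81, 5.67, 4.09, 3.92, 4.39 and 8.9% were called in these *Gtpbp2*-/- fits, in the same order.

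By tissue, 8 of the 18 brain collagens (5 higher, 3 lower) and 5 of the 26 of connective tissue (3 higher, 2 lower) were called in *Gtpbp1*-/- RNA, with medians of 0.32 and 0.29. Calls in *Gtpbp2*-/- RNA were 4 of 18 (3 higher, 1 lower) and 2 of 26 (1 higher, 1 lower), with medians of 0.22 and 0.07. Over all genes tested, 13.8% were called in *Gtpbp1*-/- RNA and 8.63% in *Gtpbp2*-/- RNA.

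Type IV collagen is the structural network of every basement membrane, and in brain it is laid down chiefly by endothelial cells, pericytes and pial cells. *Col4a1* (ENSMUSG00000031502.11, chromosome 8, 11198423 to 11312826 on the minus strand of GRCm38) encodes a chain that pairs with that of *Col4a2* in the widespread form of the network. *Col4a1* stood at 69.8, 73.4 and 72.5 RNA CPM in B6J, 76.8, 105 and 105 in *Gtpbp1*-/- and 91.5, 121 and 145 in *Gtpbp2*-/-. *Col4a2* (ENSMUSG00000031503.13, chromosome 8, 11312805 to 11449287 on the plus strand) stood at 44.0, 49.3 and 47.5 RNA CPM in B6J, 65.6, 78.9 and 70.1 in *Gtpbp1*-/- and 69.3, 85.0 and 103 in *Gtpbp2*-/-. For both genes, all 6 mutant libraries lay above all 3 B6J libraries. *Col4a1* rose in *Gtpbp1*-/- (log2FC 0.41 ± 0.11, adjusted p = 0.0244) and in *Gtpbp2*-/- (log2FC 0.73 ± 0.14, adjusted p = 0.0117), as did *Col4a2* (log2FC 0.61 ± 0.09, adjusted p = 0.00049 and log2FC 0.87 ± 0.12, adjusted p = 0.00174). The *Col4a2* call in *Gtpbp1*-/- held throughout (1.11e-09 to 0.0199). The *Col4a2* call in *Gtpbp2*-/- held throughout (9e-09 to 0.0259). The *Col4a1* call in *Gtpbp1*-/- was lost without mutant replicate 2 or 3 (0.12 and 0.0912), without B6J replicate 1, 2 or 3 (0.0961, 0.0686 and 0.0536), in a fit of all 9 libraries (0.119), on coding transcripts (0.112), with a length offset (0.598) and in limma on TPM (0.321), range 4.2e-05 to 0.598. The *Col4a1* call in *Gtpbp2*-/- was lost without B6J replicate 1 or 2 (0.0569 and 0.0542), with a sex term (0.0515), with a length offset (0.0737) and in limma on TPM (0.0835), range 8.89e-06 to 0.0835.

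*Col4a4* pairs with *Col4a3* and *Col4a5* in the kidney form of the network. *Col4a4* stood at 2.43, 2.94 and 2.05 RNA CPM in B6J, 4.59, 4.48 and 4.91 in *Gtpbp1*-/- and 2.71, 5.28 and 5.61 in *Gtpbp2*-/-. All *Gtpbp1*-/- libraries exceeded B6J, whereas *Gtpbp2*-/- replicate 1 fell within the B6J range. It rose in *Gtpbp1*-/- (log2FC 0.92 ± 0.22, adjusted p = 0.0152) and missed the threshold in *Gtpbp2*-/- (log2FC 0.88 ± 0.29, adjusted p = 0.0921). The *Col4a4* call in *Gtpbp1*-/- was lost without mutant replicate 2 or 3 (0.0552 and 0.0591), with a length offset (0.068) and in limma on TPM (0.14), range 0.00138 to 0.14. The other 3 chains, *Col4a3*, *Col4a5* and *Col4a6*, had log2FC values of 0.45, 0.22 and 0.36 in *Gtpbp1*-/- and 0.43, 0.02 and 0.18 in *Gtpbp2*-/-, all uncalled.

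The type IV genes lie in head-to-head pairs. *Col4a1* and *Col4a2* start 21 bases apart on chromosome 8, *Col4a3* and *Col4a4* 72 bases apart on chromosome 1, and *Col4a5* and *Col4a6* 1309 bases apart on chromosome X. The stretch that holds both starts of the called pair is shown because the transcripts overlap there, with the start base of *Col4a2* as the left and that of *Col4a1* as the right capital (chr8:11312801-11312830, GRCm38.p6, plus strand, RefSeq).
*Col4a1*-*Col4a2* starts: cggcAgtgcgcgggcggcgtctccaAgggg
Since the RNA kit does not mark strand, reads from this overlap cannot be assigned to either gene.

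Vessel markers were read beside the type IV chains. The 11 endothelial markers, all above 1 CPM in B6J and led by *Slco1a4*, summed to 319, 316 and 300.0 RNA CPM in B6J, 394, 408 and 426 in *Gtpbp1*-/- and 357, 463 and 508 in *Gtpbp2*-/-. Of these, 5 of 11 were called higher in *Gtpbp1*-/- RNA and 4 of 11 in *Gtpbp2*-/- RNA, among them *Cldn5* (log2FC 0.59 ± 0.11, adjusted p = 0.0029 and log2FC 0.74 ± 0.12, adjusted p = 0.00275). The 10 markers of pericytes and vascular smooth muscle, also all above 1 CPM in B6J and led by *Rgs5*, summed to 287, 291 and 291 RNA CPM in B6J, 345, 409.6 and 429 in *Gtpbp1*-/- and 268, 460.4 and 468 in *Gtpbp2*-/-, with 3 of 10 called higher in *Gtpbp1*-/- and 0 in *Gtpbp2*-/-. Of all genes tested, 5.9% were called higher in *Gtpbp1*-/- RNA and 3.61% in *Gtpbp2*-/- RNA. The part of vessel content in the *Col4a1* and *Col4a2* difference was not tested.

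Types VII, XV and XVIII attach to basement membranes. *Col7a1* (ENSMUSG00000025650.13, chromosome 9, 108953586 to 108984875 on the plus strand), which forms the anchoring fibrils of skin, stood at 8.89, 9.05 and 11.8 RNA CPM in B6J, 17.7, 25.9 and 20.1 in *Gtpbp1*-/- and 10.1, 20.04 and 15.6 in *Gtpbp2*-/-. All *Gtpbp1*-/- libraries and *Gtpbp2*-/- replicates 2 and 3 exceeded all B6J libraries, and *Gtpbp2*-/- replicate 1 did not. *Col7a1* rose in *Gtpbp1*-/- (log2FC 1.09 ± 0.16, adjusted p = 0.000583) and was not called in *Gtpbp2*-/- (log2FC 0.62 ± 0.23, adjusted p = 0.134). The *Col7a1* call in *Gtpbp1*-/- held throughout (1.9e-13 to 0.00953). The log2FC reached 1.93 with an offset for effective transcript length and 1.98 in limma on TPM. Within *Gtpbp2*-/- replicate 1 most estimated counts of *Col7a1* went to the transcript *Col7a1*-202 (456 counts, against 8 for *Col7a1*-208). *Col7a1*-202 had at most 3 counts in any other RNA library. *Col18a1*, a multiplexin of vessel and pial basement membranes, stood at 139, 136 and 99.7 RNA CPM in B6J, 147, 113 and 118 in *Gtpbp1*-/- and 122, 123 and 82.2 in *Gtpbp2*-/-. Its groups overlapped and it was not called (0.01, adjusted p = 0.973 in *Gtpbp1*-/-, -0.20, adjusted p = 0.612 in *Gtpbp2*-/-), nor was *Col15a1* (0.16, adjusted p = 0.623 and 0.29, adjusted p = 0.584).

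Fibrillar collagens are the bulk proteins of bone, tendon, skin and meninges. *Col1a2* stood at 72.3, 79.9 and 52.7 RNA CPM in B6J, 73.3, 90.7 and 76.9 in *Gtpbp1*-/- and 56.8, 82.8 and 69.3 in *Gtpbp2*-/-. *Col1a1* (ENSMUSG00000001506.10, chromosome 11, 94936224 to 94953042 on the plus strand) stood at 31.5, 32.1 and 26.2 RNA CPM in B6J, 27.6, 45.8 and 29.8 in *Gtpbp1*-/- and 21.6, 43.7 and 33.2 in *Gtpbp2*-/-. The groups overlapped for both chains and neither was called in *Gtpbp1*-/- (0.23, adjusted p = 0.365 and 0.20, adjusted p = 0.566) or *Gtpbp2*-/- (0.03, adjusted p = 0.952 and 0.14, adjusted p = 0.805). *Col3a1*, the fibril collagen of vessel walls and meninges, stood at 31.2, 35.5 and 30.5 RNA CPM in B6J, 42.7, 47.8 and 42.0 in *Gtpbp1*-/- and 25.4, 42.6 and 46.1 in *Gtpbp2*-/-. All *Gtpbp1*-/- libraries exceeded B6J and *Col3a1* rose there (log2FC 0.45 ± 0.09, adjusted p = 0.00591), whereas *Gtpbp2*-/- replicate 1 was the lowest of all 9 libraries (log2FC 0.23 ± 0.20, adjusted p = 0.564). The *Col3a1* call in *Gtpbp1*-/- was lost without mutant replicate 2 (0.0505), in a fit of all 9 libraries (0.127), with a length offset (0.511) and in limma on TPM (0.277), range 0.00017 to 0.511.

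*Col27a1* (ENSMUSG00000045672.15, chromosome 4, 63214004 to 63334991 on the plus strand), a fibrillar collagen of cartilage that is also transcribed in neural tissue, was the sole fibrillar member called lower in either mutant. It stood at 21.7, 14.8 and 24.5 RNA CPM in B6J, 9.95, 9.33 and 6.74 in *Gtpbp1*-/- and 8.77, 8.37 and 5.99 in *Gtpbp2*-/-. All 6 mutant libraries lay below all B6J libraries. *Col27a1* fell in *Gtpbp1*-/- (log2FC -1.23 ± 0.20, adjusted p = 0.00185) and in *Gtpbp2*-/- (log2FC -1.40 ± 0.21, adjusted p = 0.00216). The *Col27a1* call in *Gtpbp1*-/- was lost in limma on TPM (0.0696), range 1.58e-15 to 0.0696. The *Col27a1* call in *Gtpbp2*-/- was lost in limma on TPM (0.0657), range 2.16e-09 to 0.0657. The remaining fibrillar members (*Col2a1*, *Col5a1*, *Col5a2*, *Col5a3*, *Col11a1*, *Col11a2* and *Col24a1*) were uncalled, with log2FC from -0.54 (*Col2a1*) to 0.76 (*Col11a1*) in *Gtpbp1*-/- and from -0.34 (*Col5a1*) to 0.64 (*Col11a1*) in *Gtpbp2*-/-.

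FACITs decorate the surface of fibrils and do not form fibrils themselves. Type IX is built of *Col9a1*, *Col9a2* and *Col9a3*. *Col9a1* (ENSMUSG00000026147.16, chromosome 1, 24177610 to 24252684 on the plus strand) stood at 3.95, 4.99 and 6.81 RNA CPM in B6J, 2.60, 2.76 and 2.12 in *Gtpbp1*-/- and 3.41, 2.07 and 2.30 in *Gtpbp2*-/-, with all mutant libraries below all B6J libraries. It fell in *Gtpbp1*-/- (log2FC -1.07 ± 0.25, adjusted p = 0.0112) and *Gtpbp2*-/- (log2FC -1.02 ± 0.28, adjusted p = 0.0424). *Col9a2* stood at 14.97, 17.6 and 14.4 RNA CPM in B6J, 19.9, 19.9 and 20.2 in *Gtpbp1*-/- and 20.95, 24.4 and 23.7 in *Gtpbp2*-/-, with all mutant libraries above B6J. It rose in *Gtpbp2*-/- (log2FC 0.56 ± 0.12, adjusted p = 0.016) and missed the threshold in *Gtpbp1*-/- (log2FC 0.35 ± 0.11, adjusted p = 0.0521). *Col9a3* stood at 85.6, 81.1 and 71.8 RNA CPM in B6J, 65.8, 70.1 and 57.4 in *Gtpbp1*-/- and 57.7, 71.8 and 51.9 in *Gtpbp2*-/-, lower than B6J in all *Gtpbp1*-/- libraries and in *Gtpbp2*-/- replicates 1 and 3. It fell in *Gtpbp1*-/- (log2FC -0.30 ± 0.09, adjusted p = 0.046) and missed the threshold in *Gtpbp2*-/- (log2FC -0.39 ± 0.12, adjusted p = 0.0667).

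The *Col9a1* call in *Gtpbp1*-/- was lost in limma on TPM (0.078), range 0.000565 to 0.078. The *Col9a1* call in *Gtpbp2*-/- was lost without mutant replicate 2 or 3 (0.142 and 0.15), without B6J replicate 1, 2 or 3 (0.0528, 0.106 and 0.11), after upper quartile scaling (0.0536), with a sex term (0.1), on coding transcripts (0.0739) and in limma on TPM (0.109), range 0.00409 to 0.15. The *Col9a2* call in *Gtpbp2*-/- was lost without mutant replicate 2 or 3 (0.0673 and 0.0677), without B6J replicate 1 (0.0725), with a length offset (0.111) and in limma on TPM (0.0708), range 0.000459 to 0.111. The *Col9a3* call in *Gtpbp1*-/- was lost without mutant replicate 1, 2 or 3 (0.0971, 0.0562 and 0.161), without B6J replicate 1 or 2 (0.186 and 0.132), after upper quartile scaling (0.104), in a fit of all 9 libraries (0.105), with a sex term (0.0507), on coding transcripts (0.084), with a length offset (0.156) and in limma on TPM (0.673), range 0.00939 to 0.673.

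*Col20a1*, a FACIT first found in cornea and tendon that glial cells also transcribe, stood at 8.34, 7.47 and 8.48 RNA CPM in B6J, 9.79, 14.3 and 14.7 in *Gtpbp1*-/- and 12.7, 11.6 and 12.2 in *Gtpbp2*-/-. All mutant libraries exceeded all B6J libraries. It rose in *Gtpbp1*-/- (log2FC 0.68 ± 0.17, adjusted p = 0.0175) and *Gtpbp2*-/- (log2FC 0.59 ± 0.14, adjusted p = 0.0262). The *Col20a1* call in *Gtpbp1*-/- was lost without mutant replicate 2 or 3 (0.101 and 0.0804) and without B6J replicate 1 or 2 (just above 0.05 and 0.0773), range 0.000595 to 0.101. The *Col20a1* call in *Gtpbp2*-/- was lost without mutant replicate 2 or 3 (0.0657 and 0.0969), without B6J replicate 1 or 2 (0.0707 and 0.0935) and with a sex term (0.101), range 0.00116 to 0.101. *Col22a1*, the FACIT of muscle-tendon junctions, was near the lower end of detection at 0.896, 1.10 and 0.934 RNA CPM in B6J, 2.21, 1.88 and 1.85 in *Gtpbp1*-/- and 1.73, 1.26 and 1.42 in *Gtpbp2*-/-. Mutant libraries again lay above B6J, and *Col22a1* rose in *Gtpbp1*-/- (log2FC 1.02 ± 0.30, adjusted p = 0.0388) without passing in *Gtpbp2*-/- (log2FC 0.59 ± 0.32, adjusted p = 0.309). The *Col22a1* call in *Gtpbp1*-/- was lost without mutant replicate 1, 2 or 3 (0.134, 0.112 and 0.089), without B6J replicate 1, 2 or 3 (0.0883, 0.0662 and 0.0549), with no count minimum (0.0524), with a sex term (0.111), with a length offset (0.196) and in limma on TPM (0.228), range 0.0189 to 0.228. The FACITs *Col12a1*, *Col14a1*, *Col16a1* and *Col19a1* were uncalled, with log2FC between -0.07 and 0.32 in *Gtpbp1*-/- and between -0.23 and 0.14 in *Gtpbp2*-/-.

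Transmembrane collagens span the cell membrane and can be shed from it. *Col25a1* (ENSMUSG00000058897.17, chromosome 3, 130131501 to 130599877 on the plus strand), which encodes the precursor of a protein found in amyloid plaques and is made by neurons, stood at 4.22, 5.87 and 6.65 RNA CPM in B6J, 17.2, 15.8 and 8.10 in *Gtpbp1*-/- and 35.0, 9.63 and 20.02 in *Gtpbp2*-/-. All mutant libraries exceeded all B6J libraries, with *Gtpbp2*-/- replicate 1 the highest and a wide spread among the *Gtpbp2*-/- libraries. *Col25a1* rose in *Gtpbp1*-/- (log2FC 1.29 ± 0.28, adjusted p = 0.0141) and missed the threshold in *Gtpbp2*-/- despite a larger fold change (log2FC 1.95 ± 0.49, adjusted p = 0.0725). In DESeq2 its *Gtpbp2*-/- adjusted p was 0.0041. The *Col25a1* call in *Gtpbp1*-/- was lost without B6J replicate 1 or 2 (0.0528 and 0.0507), in a fit of all 9 libraries (0.153) and in limma on TPM (0.0578), range 4.63e-12 to 0.153.

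*Col23a1*, a transmembrane collagen of neurons, stood at 47.3, 48.3 and 37.4 RNA CPM in B6J, 35.6, 33.5 and 35.8 in *Gtpbp1*-/- and 35.2, 35.3 and 31.1 in *Gtpbp2*-/-. All mutant libraries lay below all B6J libraries. It fell in *Gtpbp1*-/- (log2FC -0.34 ± 0.10, adjusted p = 0.0426) and missed the threshold in *Gtpbp2*-/- (log2FC -0.39 ± 0.11, adjusted p = 0.0524). The *Col23a1* call in *Gtpbp1*-/- was lost without mutant replicate 1, 2 or 3 (0.0906, 0.174 and 0.0813), without B6J replicate 1 or 2 (0.156 and 0.163), after upper quartile scaling (0.0806), with a sex term (0.0718), on coding transcripts (0.0509), with a length offset (0.156) and in limma on TPM (0.608), range 0.00338 to 0.608. *Col17a1*, the hemidesmosome collagen of skin, stood at 4.56, 7.21 and 6.93 RNA CPM in B6J, 3.87, 2.85 and 3.81 in *Gtpbp1*-/- and 5.91, 4.61 and 4.47 in *Gtpbp2*-/-. It fell in *Gtpbp1*-/- (log2FC -0.83 ± 0.23, adjusted p = 0.0292), where all libraries lay below B6J, and overlapped with B6J in *Gtpbp2*-/- (log2FC -0.32 ± 0.22, adjusted p = 0.456). The *Col17a1* call in *Gtpbp1*-/- was lost without mutant replicate 1, 2 or 3 (0.0572, 0.141 and 0.0576), without B6J replicate 2 or 3 (0.117 and 0.0559), with a sex term (0.0601), with a length offset (0.0763) and in limma on TPM (0.264), range 0.00464 to 0.264. *Col13a1*, found at neuromuscular junctions, was uncalled in *Gtpbp1*-/- (0.10, adjusted p = 0.825) and *Gtpbp2*-/- (-0.03, adjusted p = 0.963).

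No type VI, type VIII, type X or other collagen was called in RNA by edgeR. The type VI chain *Col6a1* stood at 24.4, 21.1 and 22.0 RNA CPM in B6J, 29.4, 27.4 and 24.4 in *Gtpbp1*-/- and 17.9, 23.6 and 20.9 in *Gtpbp2*-/-, and *Col6a2* at 23.6, 23.2 and 17.5 RNA CPM in B6J, 30.8, 28.7 and 23.4 in *Gtpbp1*-/- and 17.2, 20.9 and 26.7 in *Gtpbp2*-/-. *Col6a3*, the long chain of type VI, stood at 4.88, 3.24 and 2.78 RNA CPM in B6J, 2.97, 5.26 and 3.63 in *Gtpbp1*-/- and 3.22, 4.82 and 4.94 in *Gtpbp2*-/-, with overlapping groups. *Col26a1* stood at 5.95, 4.90 and 5.92 RNA CPM in B6J, 5.75, 8.34 and 6.74 in *Gtpbp1*-/- and 6.21, 7.10 and 6.79 in *Gtpbp2*-/-, with *Gtpbp2*-/- libraries above B6J (0.26, adjusted p = 0.441) and *Gtpbp1*-/- libraries overlapping (0.31, adjusted p = 0.343).

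*Col8a1* and *Col8a2* build the network of vessel and corneal membranes. *Col8a1* stood at 14.7, 12.9 and 4.07 RNA CPM in B6J, 17.4, 14.7 and 7.68 in *Gtpbp1*-/- and 3.26, 12.3 and 9.80 in *Gtpbp2*-/-, and *Col8a2* at 12.7, 11.3 and 3.95 RNA CPM in B6J, 17.7, 13.7 and 8.20 in *Gtpbp1*-/- and 4.82, 10.1 and 7.99 in *Gtpbp2*-/-. Within each genotype the spread was wide, with low values in B6J replicate 3 and *Gtpbp2*-/- replicate 1. The 10 choroid plexus markers, all above 1 CPM in B6J and led by *Ttr*, summed to 1884, 1253 and 283 RNA CPM in B6J, 1850.0, 1379 and 414 in *Gtpbp1*-/- and 91.3, 1161 and 749 in *Gtpbp2*-/-, so the same 2 libraries were lowest in both. None of the 10 was called in RNA or footprints of either mutant.

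**Figure D2:**
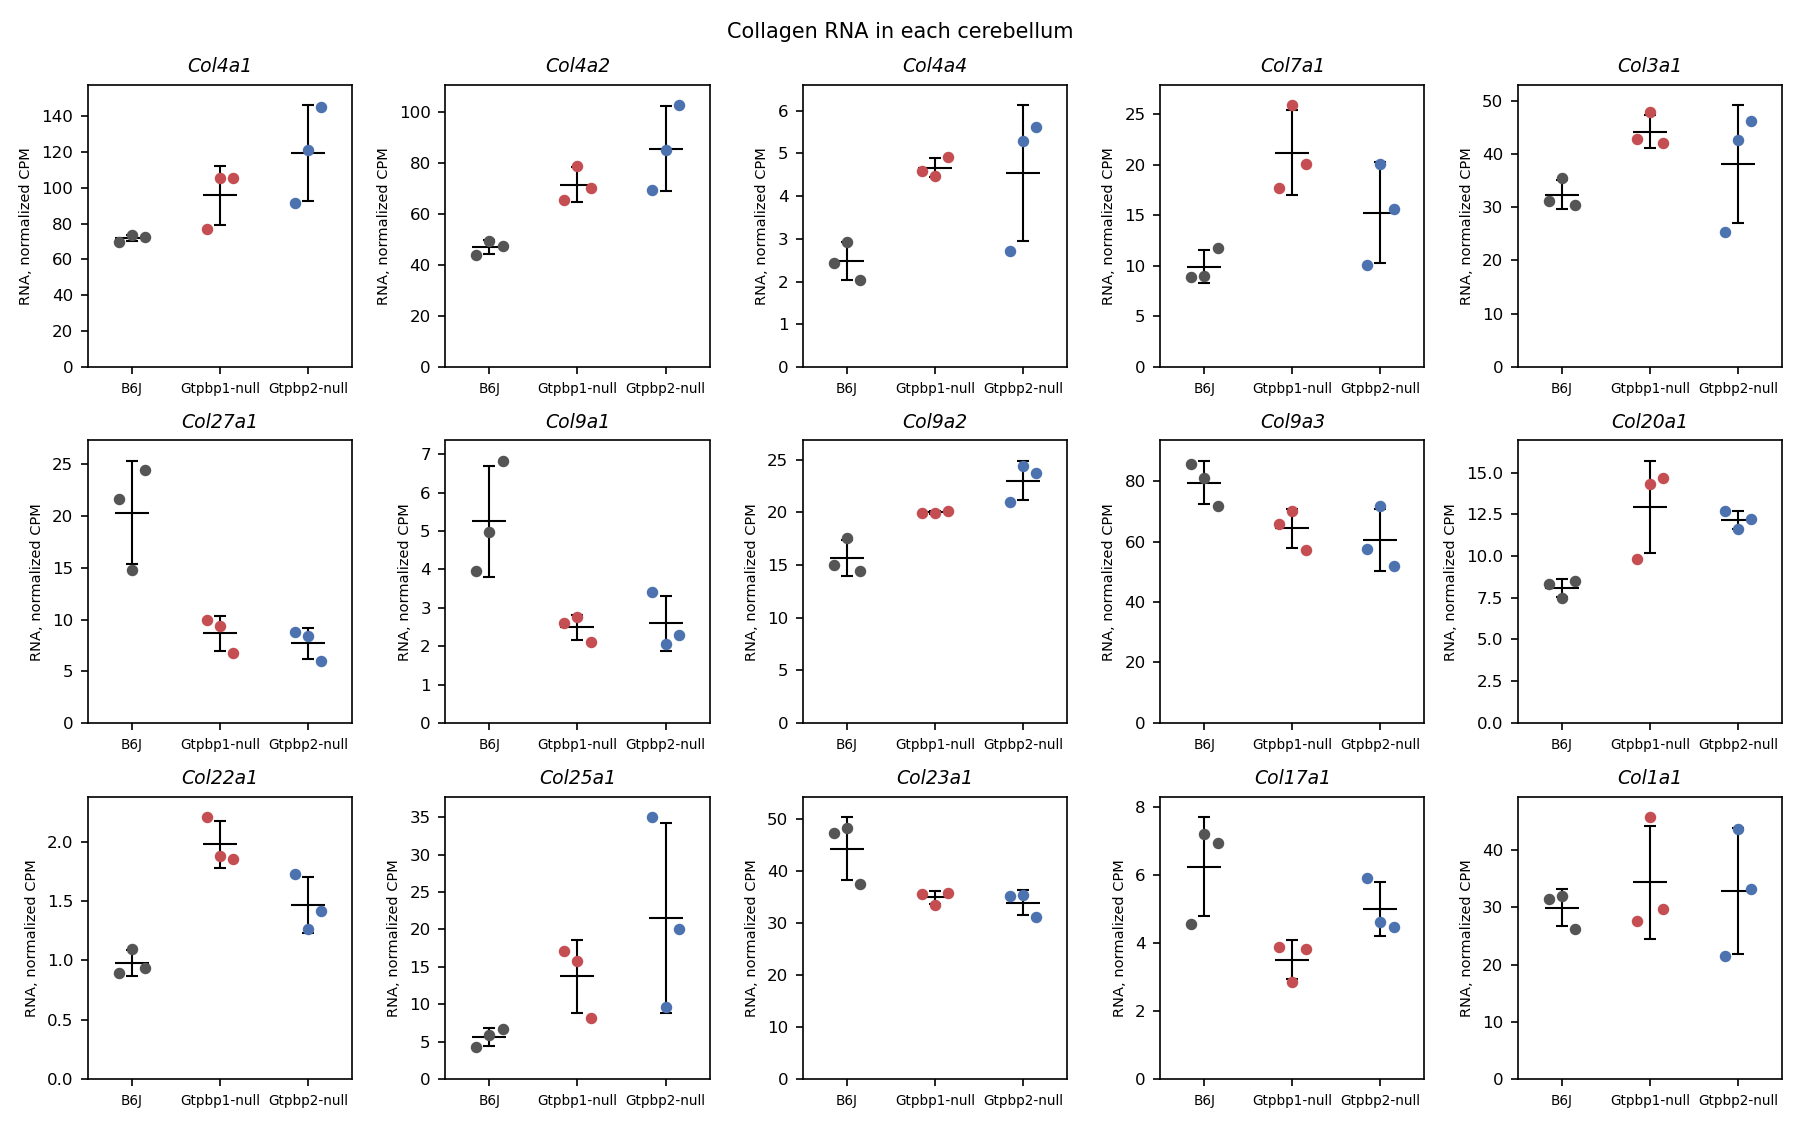
RNA CPM of called or leading collagens in the 9 RNA libraries, a point per library with mean ± SD of 3, by genotype. *Col4a1*, *Col4a2* and *Col25a1* lie above B6J and *Col27a1* and *Col9a1* below B6J in all 6 mutant libraries.

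The footprint comparisons ask which collagens differ in the amount of ribosome-protected coding sequence. In *Gtpbp1*-/-, 1 of the 40 collagens with enough counts was called, *Col6a3*, where 0.745% of the 13956 genes tested were called (0.573% higher). For *Gtpbp2*-/-, 3 of 38 were called, all higher, where 2.94% of 13797 genes were called (1.28% higher). At an unadjusted p under 0.05 there were 17 and 8 (of all genes 1763 and 2355), and DESeq2 called 10 and 3 (2.91% and 4.75% of all genes). The median log2FC of the tested collagens was 0.74 in *Gtpbp1*-/- and 0.20 in *Gtpbp2*-/-, against 0.01 and 0.01 for all genes tested. The brain collagens had medians of 0.37 and 0.19 with 0 and 2 called of 18, and those of connective tissue 0.82 and 0.24 with 1 called of 22 and 1 of 20. *Col6a4*, *Col6a6*, *Col24a1* and *Col28a1* were too low to be tested in either comparison, and *Col10a1* and *Col22a1* in *Gtpbp2*-/-.

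Sex differed between the footprint groups. By Y-linked genes, replicates 1 and 2 of B6J and replicate 1 of *Gtpbp1*-/- were male and all 3 *Gtpbp2*-/- libraries were female, while in RNA replicate 2 of B6J and replicates 1 and 2 of *Gtpbp1*-/- were male. A sex term thus leaves B6J replicate 3 alone to compare with the 3 *Gtpbp2*-/- footprint libraries. Where that fit loses a call, sex and the loss of B6J libraries cannot be told apart. With a term for sex in the model, the count of called collagens was 0 in *Gtpbp1*-/- and 0 in *Gtpbp2*-/-. Of all genes, 0.401% and 0.326% were called with that term. The log2FC values in *Gtpbp2*-/- were then 1.02 for *Col4a1*, 1.34 for *Col4a2* and 3.96 for *Col7a1*, and that of *Col6a3* in *Gtpbp1*-/- was 1.32. The *Gtpbp1*-/- count was 0, 1 or 4 without *Gtpbp1*-/- replicate 1, 2 or 3, and 0, 0 or 1 without B6J replicate 1, 2 or 3. In the same order these fits called 0.269, 0.702, 1.32, 0.159, 0.296 and 1.34% of all genes. Without *Gtpbp1*-/- replicate 3 the 4 called were *Col6a3*, *Col4a1*, *Col4a2* and *Col11a1*, and without *Gtpbp1*-/- replicate 2 or B6J replicate 3 the call was *Col1a2* in place of *Col6a3*. The *Gtpbp2*-/- count was 1 without *Gtpbp2*-/- replicate 1, and 2 or 3 without any other library. These fits called 0.779% of all genes without that replicate and 1.1 to 4.54% without any other library.

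Footprints of *Col4a1* and *Col4a2* had the same order of group means as their RNA. *Col4a1* stood at 124, 83.9 and 129 footprint CPM in B6J, 232, 231 and 181 in *Gtpbp1*-/- and 265, 341 and 191 in *Gtpbp2*-/-. *Col4a2* stood at 103, 59.2 and 91.3 footprint CPM in B6J, 172, 161 and 119 in *Gtpbp1*-/- and 237, 298 and 167 in *Gtpbp2*-/-. All 6 mutant libraries exceeded all B6J libraries for both chains. *Col4a1* rose in *Gtpbp2*-/- (log2FC 1.23 ± 0.22, adjusted p = 0.00934) and missed the threshold in *Gtpbp1*-/- (log2FC 0.94 ± 0.21, adjusted p = 0.0607). *Col4a2* likewise rose in *Gtpbp2*-/- (log2FC 1.45 ± 0.24, adjusted p = 0.00702) and not in *Gtpbp1*-/- (log2FC 0.83 ± 0.23, adjusted p = 0.123). The *Col4a1* call in *Gtpbp2*-/- was lost without mutant replicate 1 (0.0595) and with a sex term (0.27), range 1.38e-05 to 0.27. The *Col4a2* call in *Gtpbp2*-/- was lost with a sex term (0.231), range 3.96e-07 to 0.231.

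Endothelial markers summed to 635, 431 and 676 footprint CPM in B6J, 1362, 1005 and 732 in *Gtpbp1*-/- and 1113, 963 and 1059 in *Gtpbp2*-/-, with all mutant libraries above B6J. Of the 11, *Cldn5* was the sole call in *Gtpbp1*-/- (log2FC 1.42 ± 0.25, adjusted p = 0.0209), and *Cldn5*, *Cdh5* and *Tie1* were called higher in *Gtpbp2*-/-. Markers of pericytes and smooth muscle, here led by *Vtn*, summed to 469, 493 and 530.2 footprint CPM in B6J, 1193, 654 and 736 in *Gtpbp1*-/- and 709, 740.3 and 652 in *Gtpbp2*-/-, again above B6J in all mutant libraries, with 0 of 10 called in *Gtpbp1*-/- and 3 of 10 (*Rgs5*, *Abcc9* and *Acta2*) called higher in *Gtpbp2*-/-. Of all genes tested, 0.573% were called higher in *Gtpbp1*-/- footprints and 1.28% in *Gtpbp2*-/- footprints. The part of these cells in the type IV footprints was not tested.

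*Col7a1* footprints stood at 2.01, 2.64 and 1.43 footprint CPM in B6J, 3.17, 1.61 and 3.34 in *Gtpbp1*-/- and 28.4, 34.9 and 6.09 in *Gtpbp2*-/-. All 3 *Gtpbp2*-/- libraries exceeded every B6J and *Gtpbp1*-/- library, with replicate 3 far below replicates 1 and 2. *Col7a1* rose in *Gtpbp2*-/- (log2FC 3.49 ± 0.68, adjusted p = 0.036) and was uncalled in *Gtpbp1*-/- (log2FC 0.42 ± 0.54, adjusted p = 0.814), where the RNA had risen. The *Col7a1* call in *Gtpbp2*-/- was lost without mutant replicate 1 (0.0919), without B6J replicate 1, 2 or 3 (0.145, 0.256 and 0.129), with no count minimum (0.0705) and with a sex term (0.377), range 1.76e-08 to 0.377. *Col18a1* footprints stood at 257, 226 and 324 footprint CPM in B6J, 276, 338 and 301 in *Gtpbp1*-/- and 368, 497 and 315 in *Gtpbp2*-/-, overlapping in both comparisons (0.18, adjusted p = 0.752 in *Gtpbp1*-/-, 0.54, adjusted p = 0.159 in *Gtpbp2*-/-).

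*Col6a3* (ENSMUSG00000048126.16, chromosome 1, 90765923 to 90843971 on the minus strand) was the called member in *Gtpbp1*-/- footprints and stood at 8.05, 5.95 and 7.94 footprint CPM in B6J, 16.6, 23.4 and 18.2 in *Gtpbp1*-/- and 9.21, 10.995 and 4.64 in *Gtpbp2*-/-. All *Gtpbp1*-/- libraries exceeded all others, and *Gtpbp2*-/- overlapped with B6J. It rose in *Gtpbp1*-/- (log2FC 1.41 ± 0.28, adjusted p = 0.0393) and did not differ past the threshold in *Gtpbp2*-/- (log2FC 0.13 ± 0.37, adjusted p = 0.904). The *Col6a3* call in *Gtpbp1*-/- was lost without mutant replicate 1 or 2 (0.0781 and 0.14), without B6J replicate 1, 2 or 3 (0.164, 0.134 and 0.0594) and with a sex term (0.121), range 0.00168 to 0.164. *Col6a1* stood at 30.6, 53.1 and 22.9 footprint CPM in B6J, 73.2, 55.2 and 80.1 in *Gtpbp1*-/- and 50.3, 63.2 and 50.6 in *Gtpbp2*-/-, and *Col6a2* at 45.4, 54.6 and 40.5 footprint CPM in B6J, 89.3, 63.8 and 89.8 in *Gtpbp1*-/- and 55.6, 78.9 and 55.2 in *Gtpbp2*-/-. Both had *Gtpbp1*-/- libraries above B6J without a call in edgeR (0.97, adjusted p = 0.152 and 0.79, adjusted p = 0.11), as had *Col6a2* in *Gtpbp2*-/- (0.42, adjusted p = 0.296).

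Type I footprints showed the largest difference in CPM between *Gtpbp1*-/- and B6J. *Col1a1* stood at 109.8, 345 and 527 footprint CPM in B6J, 948, 832 and 1659.6 in *Gtpbp1*-/- and 314, 537 and 207 in *Gtpbp2*-/-. *Col1a2* stood at 157, 306 and 341 footprint CPM in B6J, 592, 519 and 938 in *Gtpbp1*-/- and 285, 427 and 264 in *Gtpbp2*-/-. For both chains the *Gtpbp1*-/- libraries exceeded all B6J and *Gtpbp2*-/- libraries, and *Gtpbp2*-/- overlapped with B6J. B6J itself spanned a wide range, with replicate 1 the lowest for both. Neither chain was called in *Gtpbp1*-/- (*Col1a1* log2FC 1.81 ± 0.58, adjusted p = 0.257; *Col1a2* log2FC 1.35 ± 0.30, adjusted p = 0.064) or in *Gtpbp2*-/- (0.09, adjusted p = 0.964 and 0.27, adjusted p = 0.714). DESeq2 gave an adjusted p of 0.089 for *Col1a1* and 0.000643 for *Col1a2* in *Gtpbp1*-/-. Across the alternatives that make no use of replicate numbers, the range was 0.0645 to 0.615 for *Col1a1* and 0.000643 to 0.208 for *Col1a2*. *Col3a1* stood at 47.2, 102 and 58.9 footprint CPM in B6J, 136, 72.8 and 145 in *Gtpbp1*-/- and 80.3, 130.3 and 70.2 in *Gtpbp2*-/-, where *Gtpbp1*-/- replicate 2 fell within the B6J range (0.77, adjusted p = 0.328 in *Gtpbp1*-/-). *Col27a1* stood at 9.84, 10.3 and 1.91 footprint CPM in B6J, 0.432, 3.33 and 1.00 in *Gtpbp1*-/- and 4.53, 6.05 and 0.677 in *Gtpbp2*-/-, low in B6J replicate 3 and in *Gtpbp2*-/- replicate 3, with no call in *Gtpbp1*-/- (-2.12, adjusted p = 0.223) or *Gtpbp2*-/- (-1.07, adjusted p = 0.574).

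**Figure D3:**
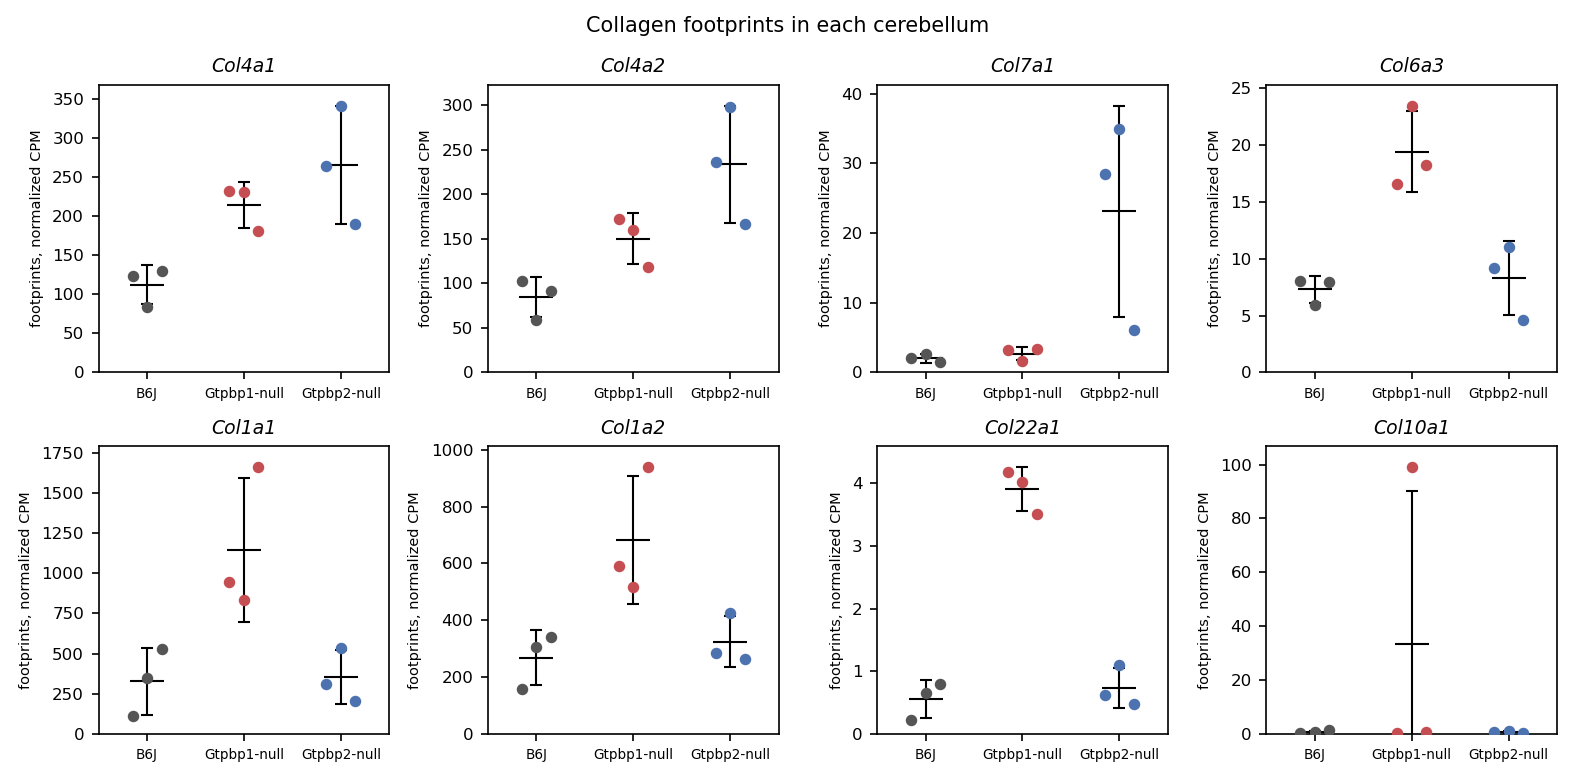
Footprint CPM of called or leading collagens in the 9 footprint libraries, a point per library with mean ± SD of 3, by genotype. *Col7a1* is high in the *Gtpbp2*-/- libraries, *Col1a1*, *Col1a2* and *Col6a3* in the *Gtpbp1*-/- libraries, and *Col4a1* and *Col4a2* in both mutants.

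Type IX footprints did not repeat the RNA differences at the threshold. *Col9a3* stood at 98.6, 148 and 107 footprint CPM in B6J, 95.7, 99.7 and 193 in *Gtpbp1*-/- and 115, 174 and 120.0 in *Gtpbp2*-/-. *Col9a2* stood at 19.9, 28.4 and 18.6 footprint CPM in B6J, 37.5, 37.9 and 51.9 in *Gtpbp1*-/- and 31.1, 38.2 and 20.97 in *Gtpbp2*-/-. *Col9a1* stood at 4.70, 5.06 and 2.54 footprint CPM in B6J, 1.30, 15.7 and 2.34 in *Gtpbp1*-/- and 2.19, 2.75 and 1.84 in *Gtpbp2*-/-. *Col9a2* was above B6J in all *Gtpbp1*-/- libraries, *Col9a3* overlapped in both mutants, and *Col9a1* was high in *Gtpbp1*-/- replicate 2 alone. None was called, with log2FC of 0.13, 0.93 and 0.70 in *Gtpbp1*-/- and 0.20, 0.41 and -0.89 in *Gtpbp2*-/-. *Col20a1* stood at 6.04, 3.08 and 5.56 footprint CPM in B6J, 6.63, 10.3 and 7.51 in *Gtpbp1*-/- and 11.2, 15.4 and 7.06 in *Gtpbp2*-/-, with all mutant libraries above B6J and no call (0.74, adjusted p = 0.438 and 1.15, adjusted p = 0.129). *Col22a1* had 0.224, 0.661 and 0.794 footprint CPM in B6J, 4.18, 4.02 and 3.51 in *Gtpbp1*-/- and 0.625, 1.10 and 0.483 in *Gtpbp2*-/-, so the *Gtpbp1*-/- libraries were above all others at 29, 35 and 21 counts against 1, 3 and 5 in B6J (log2FC 2.71 ± 0.59, adjusted p = 0.0561). It met the count minimum only through those *Gtpbp1*-/- libraries, so no conclusion is drawn from that test.

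Transmembrane footprints gave no call. *Col25a1* stood at 14.54, 10.3 and 6.35 footprint CPM in B6J, 5.33, 15.96 and 16.5 in *Gtpbp1*-/- and 14.99, 14.8 and 16.4 in *Gtpbp2*-/-, with *Gtpbp2*-/- libraries above B6J (0.57, adjusted p = 0.362) and *Gtpbp1*-/- overlapping (0.29, adjusted p = 0.839). *Col23a1* stood at 26.4, 36.8 and 19.7 footprint CPM in B6J, 18.3, 21.01 and 57.1 in *Gtpbp1*-/- and 25.5, 24.5 and 27.1 in *Gtpbp2*-/-, high in *Gtpbp1*-/- replicate 3, with no difference past the threshold (0.22, adjusted p = 0.886 and -0.11, adjusted p = 0.868).

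Replicate 2 of *Gtpbp1*-/- stood apart in footprints of cartilage collagens. *Col10a1*, made by hypertrophic chondrocytes, had 862 counts there and 2 to 8 counts in the other 8 footprint libraries. *Col2a1*, the main fibrillar collagen of cartilage, stood at 10.1, 19.2 and 23.2 footprint CPM in B6J, 18.2, 182 and 22.5 in *Gtpbp1*-/- and 14.1, 18.4 and 4.35 in *Gtpbp2*-/-, and *Col11a1*, its partner in cartilage fibrils and counted above with brain collagens, at 6.04, 10.8 and 8.10 footprint CPM in B6J, 17.1, 41.1 and 20.7 in *Gtpbp1*-/- and 8.59, 15.7 and 5.41 in *Gtpbp2*-/-. Both were highest in the same library, although *Col11a1* exceeded B6J in all 3 *Gtpbp1*-/- libraries. The fold changes of *Col10a1* (log2FC 5.30 ± 2.68, adjusted p = 0.523) and *Col2a1* (log2FC 2.08 ± 1.13, adjusted p = 0.544) rested on that library, and that of *Col11a1* was 1.67 (adjusted p = 0.0559). The 7 cartilage markers, 5 of them above 1 CPM in B6J, summed to 41.6, 25.8 and 26.5 footprint CPM in B6J, 45.0, 171 and 36.1 in *Gtpbp1*-/- and 30.8, 29.7 and 34.8 in *Gtpbp2*-/-, with *Acan* the most abundant and *Matn3* at 0 in B6J. In RNA they summed to 8.28, 8.29 and 11.2 RNA CPM in B6J, 8.46, 10.3 and 10.9 in *Gtpbp1*-/- and 10.6, 10.6 and 11.5 in *Gtpbp2*-/-, led by *Cnmd*, with *Snorc* at 0 in B6J and 3 of 7 above 1 CPM. None of the 7 was called in either assay. Whether the *Acan* reads came from cartilage or from cerebellum was not tested, nor was the part of cartilage in the *Gtpbp1*-/- footprints.

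*Col8a1* footprints stood at 27.7, 18.7 and 7.47 footprint CPM in B6J, 25.2, 7.23 and 27.0 in *Gtpbp1*-/- and 8.12, 29.96 and 24.8 in *Gtpbp2*-/-, and *Col8a2* footprints at 18.3, 27.7 and 4.61 footprint CPM in B6J, 19.2, 4.94 and 38.6 in *Gtpbp1*-/- and 6.09, 34.9 and 23.7 in *Gtpbp2*-/-. Low values of both fell in B6J replicate 3, *Gtpbp1*-/- replicate 2 and *Gtpbp2*-/- replicate 1. The 10 choroid plexus markers summed to 5798, 3944 and 82.1 footprint CPM in B6J, 13988, 239.6 and 12285 in *Gtpbp1*-/- and 526, 9770.4 and 9845 in *Gtpbp2*-/-, and the same 3 libraries were the lowest of their genotypes. The share of choroid plexus in the *Col8a1* and *Col8a2* values was not tested.

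Further markers of tissue around the cerebellum were summed as well. The 12 bone markers, 7 of them above 1 CPM in B6J and led by *Smpd3*, summed to 40.3, 73.8 and 69.3 footprint CPM in B6J, 89.5, 102 and 87.8 in *Gtpbp1*-/- and 52.3, 45.9 and 39.0 in *Gtpbp2*-/-, with *Gtpbp1*-/- above all others. In RNA, where 6 of 12 were above 1 CPM in B6J, they summed to 54.2, 53.3 and 54.9 RNA CPM in B6J, 44.3, 50.1 and 45.6 in *Gtpbp1*-/- and 43.9, 53.5 and 51.7 in *Gtpbp2*-/-. *Dmp1* was called lower in RNA of *Gtpbp1*-/- (log2FC -0.71 ± 0.20, adjusted p = 0.0322) and *Gtpbp2*-/- (log2FC -0.82 ± 0.19, adjusted p = 0.0228), and no bone marker was called in footprints. The share of all genes called lower was 7.93% in *Gtpbp1*-/- RNA and 5.02% in *Gtpbp2*-/- RNA. The 6 osteoclast markers, led by *Ctsk* and with *Oscar* at 0 in B6J, summed to 6.93, 15.4 and 13.0 footprint CPM in B6J, 20.7, 63.8 and 24.5 in *Gtpbp1*-/- and 15.1, 18.1 and 17.4 in *Gtpbp2*-/-, highest in *Gtpbp1*-/- replicate 2, and to 6.21, 5.96 and 7.21 RNA CPM in B6J, 7.35, 11.3 and 6.32 in *Gtpbp1*-/- and 6.68, 7.87 and 8.29 in *Gtpbp2*-/-. In B6J, 3 of the 6 were above 1 CPM in footprints and 1 in RNA, and 0 were called. Whether the *Smpd3* reads came from bone or from cerebellum was not tested, nor was the part of bone in the *Col1a1* and *Col1a2* footprints.

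The 12 markers of meningeal and perivascular fibroblasts, led by *Igf2*, summed to 250.3, 441 and 253 footprint CPM in B6J, 711, 336 and 705 in *Gtpbp1*-/- and 274, 372 and 381 in *Gtpbp2*-/-, high in *Gtpbp1*-/- replicates 1 and 3, and to 296, 307 and 196 RNA CPM in B6J, 325, 332 and 316 in *Gtpbp1*-/- and 198, 305 and 247 in *Gtpbp2*-/-. In B6J, 12 were above 1 CPM in footprints and 11 in RNA. *Ogn* was called higher in *Gtpbp1*-/- RNA (log2FC 0.76 ± 0.13, adjusted p = 0.00184) and *Crabp2* in *Gtpbp2*-/- footprints (log2FC 2.02 ± 0.51, adjusted p = 0.0476), 1 of 12 each. The share of all genes called higher was 5.9% in *Gtpbp1*-/- RNA and 1.28% in *Gtpbp2*-/- footprints. The 11 skeletal muscle markers, led by *Acta1*, summed to 16.1, 24.4 and 22.4 footprint CPM in B6J, 50.3, 24.7 and 69.4 in *Gtpbp1*-/- and 10.6, 11.3 and 7.44 in *Gtpbp2*-/- and to 8.23, 6.15 and 6.40 RNA CPM in B6J, 5.44, 5.80 and 6.22 in *Gtpbp1*-/- and 6.10, 6.70 and 5.99 in *Gtpbp2*-/-, with 7 and 2 above 1 CPM in B6J, *Myh2* at 0 in B6J RNA and 0 called.

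The 5 red blood cell markers, all above 1 CPM in B6J and led by *Hbb-bs*, summed to 617, 456 and 996 footprint CPM in B6J, 2236, 733 and 1328 in *Gtpbp1*-/- and 955, 3189.5 and 760.3 in *Gtpbp2*-/- and to 1402, 775 and 1104 RNA CPM in B6J, 1645, 1442 and 1819 in *Gtpbp1*-/- and 327, 1535 and 813 in *Gtpbp2*-/-, with *Alas2* called higher in *Gtpbp1*-/- RNA (log2FC 0.92 ± 0.20, adjusted p = 0.0138). That was 1 of 5, where 5.9% of all genes tested were called higher. The 8 myeloid markers of bone marrow summed to 9.62, 4.84 and 22.9 footprint CPM in B6J, 32.9, 39.7 and 27.5 in *Gtpbp1*-/- and 8.59, 14.3 and 14.1 in *Gtpbp2*-/-, led by *S100a8*, and to 2.56, 1.14 and 1.27 RNA CPM in B6J, 1.92, 3.84 and 6.03 in *Gtpbp1*-/- and 3.16, 2.30 and 3.22 in *Gtpbp2*-/-, led by *S100a9*. Of these 4 and 0 were above 1 CPM in B6J, *Elane* was at 0 in B6J RNA and 0 were called. Myeloid sums in footprints were higher in all *Gtpbp1*-/- libraries than in all others. The part of blood and marrow in the fibrillar collagen footprints was not tested.

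**Figure D4:**
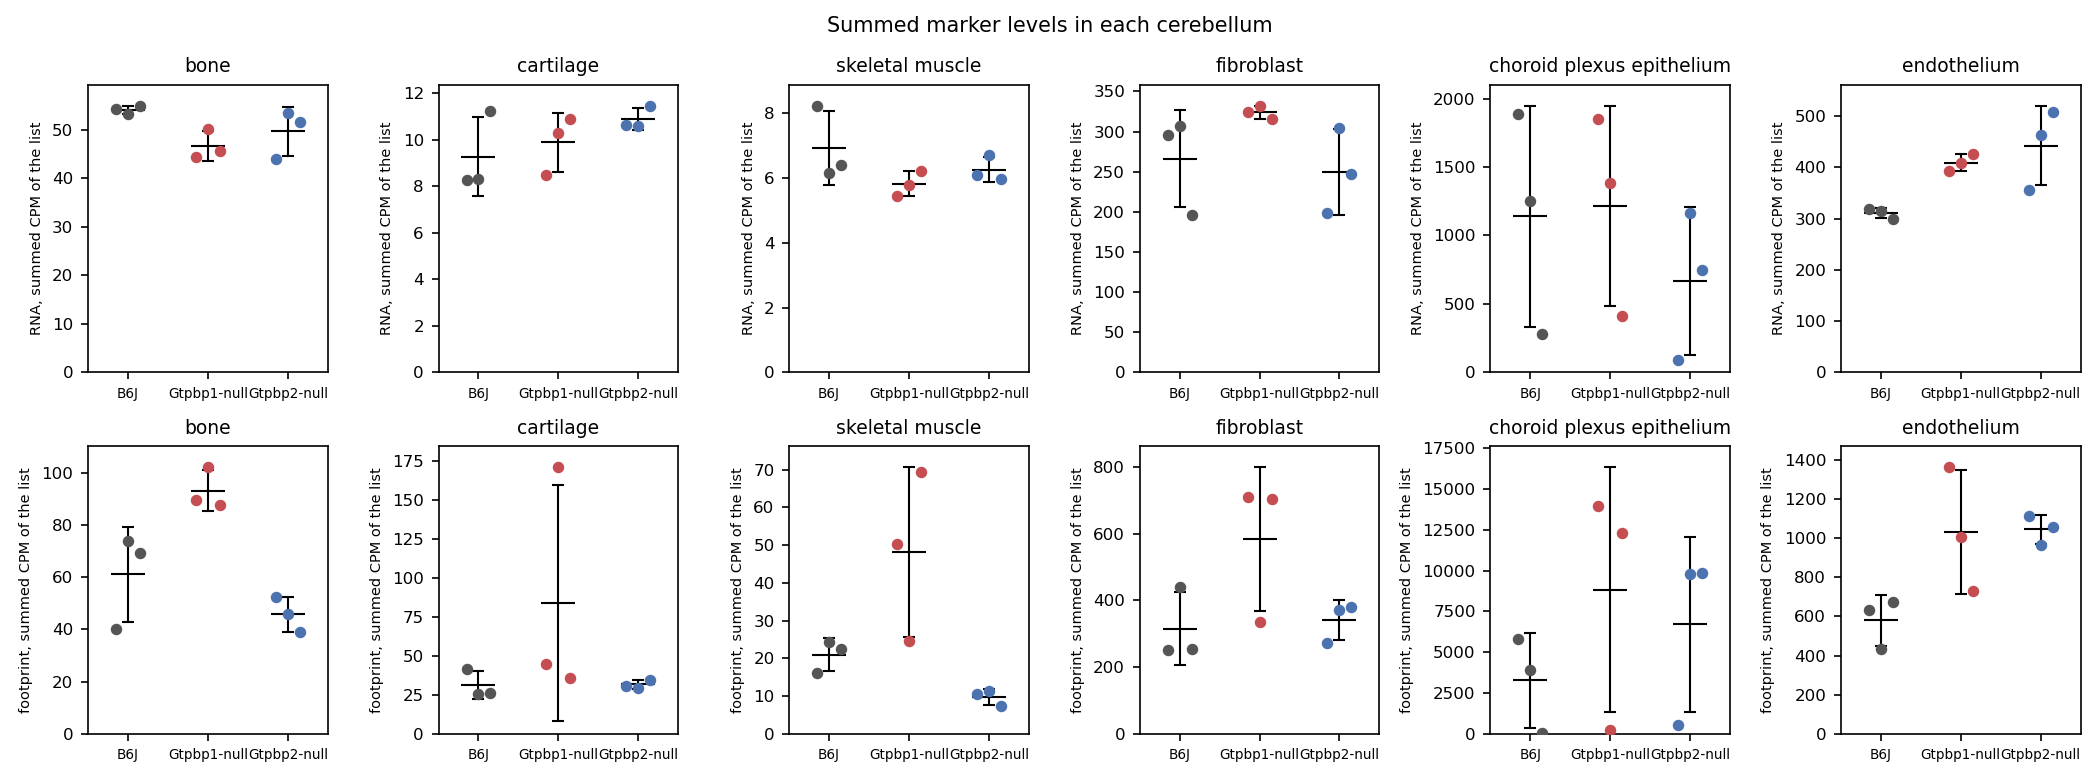
Summed CPM of the markers of bone, cartilage, skeletal muscle, fibroblasts, choroid plexus and endothelium in RNA (top) and footprint (bottom) libraries, a point per library with mean ± SD of 3, by genotype. Cartilage markers peak in replicate 2 of *Gtpbp1*-/- footprints, and choroid plexus markers vary widely within every genotype.

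The comparison of *Gtpbp1*-/- with *Gtpbp2*-/- tests whether the mutants differ from each other. In RNA, 0 of 44 collagens were called by edgeR, 0 by DESeq2 and 2 had an unadjusted p under 0.05, where 0.0595% of 25190 genes were called (0.0437% lower in *Gtpbp1*-/-), 0.183% by DESeq2, and 899 had an unadjusted p under 0.05. These 2 were *Col6a1* (log2FC 0.38, unadjusted p = 0.00913) and *Col17a1* (-0.51, unadjusted p = 0.0264), with adjusted p of 1.0 each. Members called in either mutant had uncalled direct differences, among them -0.32 for *Col4a1*, -0.26 for *Col4a2*, 0.17 for *Col27a1*, 0.47 for *Col7a1*, -0.20 for *Col9a2* and -0.65 for *Col25a1*.

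In footprints, edgeR called 0 of 41 collagens between the mutants, where 0.0% of 14142 genes were called, 9 collagens (of all genes 1523) had an unadjusted p under 0.05, and DESeq2 called 6 (0.707% of all genes). Those of DESeq2 were *Col1a1*, *Col1a2*, *Col6a3*, *Col11a1* and *Col22a1*, higher in *Gtpbp1*-/-, and *Col7a1*, higher in *Gtpbp2*-/-. *Col22a1* met the count minimum only through the *Gtpbp1*-/- libraries, so no conclusion is drawn from its call. In edgeR the log2FC values of *Gtpbp1*-/- over *Gtpbp2*-/- were -3.08 (adjusted p = 0.244) for *Col7a1*, 2.51 (adjusted p = 0.221) for *Col22a1*, 1.71 (adjusted p = 0.244) for *Col1a1*, 1.07 (adjusted p = 0.244) for *Col1a2* and 1.27 (adjusted p = 0.244) for *Col6a3*. Without *Gtpbp2*-/- replicate 3 edgeR called *Col7a1* (adjusted p = 0.00632, over a range of 2.68e-06 to 0.731 across the alternatives). *Col4a1* and *Col4a2* had -0.30 (adjusted p = 0.647) and -0.63 (adjusted p = 0.376).

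Translational efficiency was tested as the genotype difference in footprints relative to RNA, in a model over the 12 libraries of a comparison. edgeR called 0 of 38 collagens in *Gtpbp1*-/-, 0 of 37 in *Gtpbp2*-/- and 0 of 38 between the mutants, where 0.0%, 0.00773% and 0.0% of all genes tested were called. At an unadjusted p under 0.05 there were 10, 6 and 9 collagens (of all 13086, 12931 and 13292 genes 1170, 1554 and 1483). DESeq2 called 0, 1 (*Col7a1*) and 2 (*Col7a1* and *Col22a1*), and 0.443%, 1.24% and 1.17% of all genes. *Col22a1* met the count minimum only through the *Gtpbp1*-/- libraries, where it is high, so no conclusion is drawn from its call. Against B6J, *Col7a1* met that minimum only through the *Gtpbp2*-/- libraries, where it is high. No conclusion is drawn from its translational efficiency in *Gtpbp2*-/- against B6J. The largest value in *Gtpbp2*-/- was that of *Col7a1* (log2FC 2.87 ± 0.78, adjusted p = 0.238), for which DESeq2 gave an adjusted p of 0.00754 and edgeR without *Gtpbp2*-/- footprint replicate 3 gave 0.00781, over a range of 0.00754 to 0.465 across the alternatives. Between the mutants *Col7a1* had -3.55 (adjusted p = 0.231), which fell to 0.00246 without that library and ranged from 0.000476 to 0.539, and *Col22a1* had 2.14 (adjusted p = 0.232). In *Gtpbp1*-/- the largest values were 2.62 (adjusted p = 0.54) for *Col2a1*, 1.8 (adjusted p = 0.579) for *Col9a1* and 1.725 (adjusted p = 0.477) for *Col22a1*. The lowest value in either mutant was that of *Col25a1*, at -0.99 (adjusted p = 0.635) in *Gtpbp1*-/- and -1.36 (adjusted p = 0.37) in *Gtpbp2*-/-. The type I chains in *Gtpbp1*-/- had 1.61 (adjusted p = 0.534) for *Col1a1* and 1.12 (adjusted p = 0.477) for *Col1a2*, *Col6a3* had 1.29 (adjusted p = 0.477), and *Col4a1* and *Col4a2* had 0.52 (adjusted p = 0.547) and 0.23 (adjusted p = 0.839). Their values in *Gtpbp2*-/- were 0.50 (adjusted p = 0.517) and 0.59 (adjusted p = 0.461).

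Gene lists around collagens stand against 5.9% higher and 7.93% lower of all genes in *Gtpbp1*-/- RNA, 3.61% and 5.02% in *Gtpbp2*-/- RNA, 0.573% and 0.172% in *Gtpbp1*-/- footprints and 1.28% and 1.67% in *Gtpbp2*-/- footprints. Collagen chains are hydroxylated, glycosylated and folded before secretion. Of 23 genes for these steps with values in the files (24 listed), 1 was called higher and 1 lower in the RNA of either mutant and 0 in footprints. *Sec24d*, a coat protein of the vesicles that carry procollagen, rose (log2FC 0.48 ± 0.13, adjusted p = 0.0316 in *Gtpbp1*-/-, log2FC 0.56 ± 0.13, adjusted p = 0.0223 in *Gtpbp2*-/-), and *P4ha1*, a subunit of prolyl hydroxylase, fell (log2FC -0.37 ± 0.10, adjusted p = 0.0284 and log2FC -0.46 ± 0.12, adjusted p = 0.0425). Of 14 genes for propeptide cleavage and cross-linking, 0 were higher and 2 lower in the RNA of either mutant and 0 in footprints. These were the procollagen proteinases *Bmp1* (log2FC -0.87 ± 0.11, adjusted p = 0.00019 and log2FC -0.65 ± 0.12, adjusted p = 0.00709) and *Tll1* (log2FC -0.49 ± 0.11, adjusted p = 0.009 and log2FC -0.64 ± 0.14, adjusted p = 0.0145). The *Bmp1* call in *Gtpbp1*-/- held throughout (1e-20 to 0.028). The *Bmp1* call in *Gtpbp2*-/- was lost in limma on TPM (0.0673), range 1.85e-06 to 0.0673. The *Tll1* call in *Gtpbp1*-/- was lost in limma on TPM (0.178), range 0.000454 to 0.178. The *Tll1* call in *Gtpbp2*-/- was lost without mutant replicate 3 (0.0533), without B6J replicate 2 (0.0712), with a sex term (0.0699) and in limma on TPM (0.149), range 8.76e-05 to 0.149. The *Sec24d* call in *Gtpbp1*-/- was lost without mutant replicate 1, 2 or 3 (0.129, 0.067 and 0.0655), without B6J replicate 1 or 2 (0.055 and 0.104), with a sex term (0.0788), with a length offset (0.52) and in limma on TPM (0.224), range 0.00783 to 0.52. The *Sec24d* call in *Gtpbp2*-/- was lost without mutant replicate 2 or 3 (0.0799 and 0.0836), without B6J replicate 1 or 2 (0.0543 and 0.0824), with a sex term (0.0893), with a length offset (0.305) and in limma on TPM (0.159), range 0.000653 to 0.305. The *P4ha1* call in *Gtpbp1*-/- was lost without mutant replicate 1 or 3 (0.0997 and 0.0651), without B6J replicate 1 or 2 (0.0559 and 0.0821), after upper quartile scaling (0.0592), in a fit of all 9 libraries (0.0679), with a sex term (0.0707) and in limma on TPM (0.229), range 0.00834 to 0.229. The *P4ha1* call in *Gtpbp2*-/- was lost without mutant replicate 1 or 2 (0.0676 and 0.0981), without B6J replicate 1, 2 or 3 (0.108, 0.13 and 0.0921), after upper quartile scaling (0.0618), with a sex term (0.122), on coding transcripts (0.0527), with a length offset (0.0623) and in limma on TPM (0.2), range 0.00279 to 0.2.

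Collagen receptors read the matrix at the cell surface, and 4 of 11 were called higher in *Gtpbp1*-/- RNA, 2 of 11 in *Gtpbp2*-/- RNA, 1 of 10 in *Gtpbp1*-/- footprints and 2 of 10 in *Gtpbp2*-/- footprints, with 0 lower. *Ddr2*, the receptor tyrosine kinase for fibrillar collagens, stood at 23.9, 25.0 and 19.6 RNA CPM in B6J, 137, 176 and 202 in *Gtpbp1*-/- and 118, 182 and 179 in *Gtpbp2*-/-. Its footprints stood at 9.17, 15.2 and 10.8 footprint CPM in B6J, 66.6, 42.1 and 69.8 in *Gtpbp1*-/- and 63.9, 62.1 and 39.8 in *Gtpbp2*-/-, with mutant above B6J libraries in both assays. *Ddr2* rose in RNA (log2FC 2.91 ± 0.15, adjusted p = 2.96e-06 in *Gtpbp1*-/-, log2FC 2.81 ± 0.18, adjusted p = 8.51e-05 in *Gtpbp2*-/-) and in footprints (log2FC 2.34 ± 0.27, adjusted p = 0.00165 and log2FC 2.22 ± 0.25, adjusted p = 0.000281). Its RNA calls held throughout (2.99e-191 to 0.000328 in *Gtpbp1*-/-, 2.68e-68 to 0.0016 in *Gtpbp2*-/-), as did its footprint calls (2.48e-12 to 0.0335 and 1.08e-12 to 0.012). *Adgrg1*, the receptor for type III collagen in brain, rose in RNA of *Gtpbp1*-/- (log2FC 0.45 ± 0.11, adjusted p = 0.0157) and *Gtpbp2*-/- (log2FC 0.41 ± 0.10, adjusted p = 0.0212). The *Adgrg1* call in *Gtpbp1*-/- was lost without mutant replicate 1 or 2 (0.0719 and 0.0652), without B6J replicate 1 or 2 (0.079 and 0.0513) and with a sex term (0.0625), range 4.65e-05 to 0.079. The *Adgrg1* call in *Gtpbp2*-/- was lost without mutant replicate 3 (0.0694), without B6J replicate 1 or 2 (0.103 and 0.0745), with a sex term (0.073) and in limma on TPM (0.0559), range 0.0017 to 0.103. The endocytic receptor *Mrc2* (log2FC 0.54 ± 0.13, adjusted p = 0.0147) and the integrin subunit *Itga1* (log2FC 0.46 ± 0.12, adjusted p = 0.0175) rose in *Gtpbp1*-/- RNA. The *Mrc2* call in *Gtpbp1*-/- was lost without mutant replicate 2 (0.0868) and in a fit of all 9 libraries (0.0863), range 0.000866 to 0.0868. The *Itga1* call in *Gtpbp1*-/- was lost without mutant replicate 2 or 3 (0.0833 and 0.0733) and in limma on TPM (0.0847), range 0.000672 to 0.0847.

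Laminins, nidogens, perlecan and agrin complete the basement membrane around type IV collagen. Of 15 such genes, 2 were called higher in *Gtpbp1*-/- RNA, 1 in *Gtpbp2*-/- RNA, 1 in *Gtpbp1*-/- footprints and 3 in *Gtpbp2*-/- footprints, with 0 lower. The laminin chain *Lama4* of vessels rose in RNA of *Gtpbp1*-/- (log2FC 0.46 ± 0.14, adjusted p = 0.0398). *Lama5* was called higher in *Gtpbp1*-/- RNA (log2FC 0.58 ± 0.16, adjusted p = 0.0255), but its sign turned with an offset for effective length (-0.60) and in limma on TPM (-0.33). *Agrn* rose in *Gtpbp2*-/- RNA (log2FC 0.41 ± 0.11, adjusted p = 0.0409). The *Lama4* call in *Gtpbp1*-/- was lost without mutant replicate 2 or 3 (0.154 and 0.138), without B6J replicate 2 or 3 (0.0822 and 0.0877), in a fit of all 9 libraries (0.182), with a sex term (0.0793), on coding transcripts (0.0524) and in limma on TPM (0.0644), range 0.00795 to 0.182. The *Lama5* call in *Gtpbp1*-/- was lost without mutant replicate 1 or 2 (0.109 and 0.0994), without B6J replicate 2 or 3 (0.101 and 0.0537), with a sex term (0.08), with a length offset (0.138) and in limma on TPM (0.488), range 0.0011 to 0.488. The *Agrn* call in *Gtpbp2*-/- was lost without mutant replicate 1 or 3 (0.0969 and 0.123), without B6J replicate 1 or 2 (0.109 and 0.128), with a sex term (0.125) and on coding transcripts (0.0524), range 0.00102 to 0.128.

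Of 12 genes for matrix proteases and their inhibitors, 1 was called higher and 1 lower in *Gtpbp1*-/- RNA, 1 of 11 tested higher in *Gtpbp2*-/- RNA and 0 in footprints. The protease inhibitor *Timp2* rose in *Gtpbp1*-/- (log2FC 0.69 ± 0.17, adjusted p = 0.0291) and *Gtpbp2*-/- (log2FC 0.96 ± 0.16, adjusted p = 0.00828), and *Timp4* fell in *Gtpbp1*-/- (log2FC -0.26 ± 0.08, adjusted p = 0.0409). *Timp4* is also among the markers of Bergmann glia and astrocytes counted above as lower in *Gtpbp1*-/- RNA. The *Timp2* call in *Gtpbp1*-/- was lost without mutant replicate 2 (0.0889), without B6J replicate 1, 2 or 3 (0.0902, 0.0773 and 0.11) and in a fit of all 9 libraries (0.077), range 2.28e-12 to 0.11. The *Timp2* call in *Gtpbp2*-/- held throughout (2.35e-08 to 0.0441). The *Timp4* call in *Gtpbp1*-/- was lost without mutant replicate 1, 2 or 3 (0.106, 0.154 and 0.0543), without B6J replicate 2 (0.158), after upper quartile scaling (0.088), in a fit of all 9 libraries (0.0827), with a sex term (0.0833) and in limma on TPM (0.215), range 0.015 to 0.215.

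Small proteoglycans and SPARC bind collagen fibrils, and fibulins were listed with them. Of 11 tested (12 listed), 4 were called higher in *Gtpbp1*-/- RNA, 2 in *Gtpbp2*-/- RNA, 1 in *Gtpbp1*-/- footprints and 0 in *Gtpbp2*-/- footprints, with 0 lower. *Fbln5*, which tethers elastic fibres to cells, stood at 6.12, 7.69 and 8.48 RNA CPM in B6J, 28.3, 28.2 and 35.8 in *Gtpbp1*-/- and 23.0, 33.5 and 29.9 in *Gtpbp2*-/- and rose (log2FC 2.05 ± 0.15, adjusted p = 1.43e-06 and log2FC 1.96 ± 0.17, adjusted p = 7.94e-05). *Fmod*, a keratan sulfate proteoglycan that spaces fibrils, rose in *Gtpbp1*-/- (log2FC 1.18 ± 0.21, adjusted p = 0.00724) and *Gtpbp2*-/- (log2FC 0.78 ± 0.20, adjusted p = 0.0418). *Omd* rose in *Gtpbp1*-/- RNA (log2FC 0.81 ± 0.22, adjusted p = 0.0269), as did *Sparc* (log2FC 0.34 ± 0.10, adjusted p = 0.0413). Both *Fbln5* calls held throughout (2.56e-50 to 0.000613 and 3.88e-26 to 0.0036). The *Fmod* call in *Gtpbp1*-/- held throughout (1.81e-20 to 0.031). The *Fmod* call in *Gtpbp2*-/- was lost without mutant replicate 1, 2 or 3 (0.0809, 0.114 and 0.114), without B6J replicate 1 (0.0946) and in limma on TPM (0.0631), range 0.000796 to 0.114. The *Omd* call in *Gtpbp1*-/- was lost without mutant replicate 1 or 2 (0.0574 and 0.151), without B6J replicate 1 (0.0966) and with a sex term (0.0822), range 0.00444 to 0.151. The *Sparc* call in *Gtpbp1*-/- was lost without mutant replicate 1 or 2 (0.171 and 0.0827), without B6J replicate 1 or 2 (0.205 and 0.0572), with a sex term (0.127) and with a length offset (0.0613), range 0.00446 to 0.205.

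Footprint calls of list genes other than *Ddr2* were *Lama4* and *Omd* in *Gtpbp1*-/- and *Itga1*, *Lama4*, *Lamb2* and *Lamc3* in *Gtpbp2*-/-, all higher. The *Lamc3* call in *Gtpbp2*-/- was lost with a sex term (0.146), range 0.000116 to 0.146. The *Lamb2* call in *Gtpbp2*-/- was lost without mutant replicate 1, 2 or 3 (0.107, 0.142 and 0.0649), without B6J replicate 1 or 3 (0.138 and 0.0529), in a fit of all 9 libraries (0.08) and with a sex term (0.268), range 0.00734 to 0.268. That of *Lama4* in *Gtpbp2*-/- was lost without mutant replicate 1 or 2 (0.177 and 0.133), without B6J replicate 1 or 2 (0.148 and 0.224) and with a sex term (0.473), range 0.00114 to 0.473. That of *Itga1* was lost without mutant replicate 1 or 2 (0.182 and 0.155), without B6J replicate 1, 2 or 3 (0.0893, 0.146 and 0.0529), in a fit of all 9 libraries (0.178) and with a sex term (0.418), range 0.0164 to 0.418. That of *Lama4* in *Gtpbp1*-/- was lost without mutant replicate 1 (0.0528) and without B6J replicate 1 or 2 (0.125 and 0.0751), range 1.56e-05 to 0.125. That of *Omd* was lost without mutant replicate 1 (0.146), without B6J replicate 1, 2 or 3 (0.164, 0.0754 and 0.0597) and in a fit of all 9 libraries (0.124), range 0.000372 to 0.164. edgeR called no gene of these 6 lists between the mutants in RNA or footprints.

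Glycine codons made up a median of 24.2% of the codons of the 44 collagens and proline codons 16.2%, against 6.03% and 5.28% over 21549 protein-coding genes. AGA, the arginine codon read by *n-Tr20*, made up a median of 11.7 per 1000 codons in the collagens and 11.2 per 1000 in all genes. Among collagens it ran from 2.71 per 1000 in *Col13a1* to 25.6 per 1000 in *Col4a4*.

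In all, 13 collagens share exon bases with another annotated gene, 10 of them with a gene on the opposite strand, such as *Col10a1* with *Nt5dc1* and *Col9a3* with *Tcfl5*. *Col22a1* lies 7.66 megabases from *Gtpbp1* on chromosome 15, with *Col2a1* at 18.3 and *Col14a1* at 24.2 megabases, and *Col11a2* lies 12.1 megabases from *Gtpbp2* on chromosome 17. Whether sequence kept around the *Gtpbp1* allele from its first background touches the genes on chromosome 15 was not tested.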

How the data were processed

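RNA values were used as deposited by the authors, who made the estimated counts and TPM per transcript with kallisto 0.42.4 against Gencode M20 transcripts. Footprint counts per gene were made by the authors, who trimmed reads, removed ribosomal RNA reads with Bowtie2 2.2.3, aligned the rest to mm10 with HISAT2 2.1.0 and counted them on coding sequence with featureCounts. Estimated counts were summed per gene and rounded to whole counts, and TPM were summed per gene. No reads were realigned.

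Each pair of groups was fitted with edgeR 4.0.16 (R 4.3.3) on 6 libraries. Genes needed at least 5 counts in at least 3 libraries. TMM normalization, robust quasi-likelihood fits (glmQLFit), F tests (glmQLFTest) and Benjamini-Hochberg adjustment over all genes tested followed, with a call at adjusted p of at most 0.05. Translational efficiency was the interaction of assay and genotype over 12 libraries, without the 67 histone genes and where 3 libraries of each assay reached 10 counts. Alternatives used DESeq2 1.42.0, limma 3.58.1, other normalizations, count minimums, a sex term and each library left out in turn. Tables and plots were made in Python 3.11.15 with numpy 2.4.6, pandas 2.3.3 and matplotlib 3.10.9. The code was tested on simulated data.

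Values per library are given for each collagen called in any comparison and for the leading members of each class in B6J. Of pathway lists, members called in RNA of a mutant against B6J are named, up to the 4 with the smallest adjusted p per direction. Of marker lists, the most abundant gene and those at 0 are named. *Cldn5*, *Cdh5*, *Tie1*, *Rgs5*, *Abcc9*, *Acta2*, *Gfap*, *Dmp1*, *Ogn*, *Crabp2*, *Alas2*, *Lamb2*, *Lamc3* and the cartilage collagens of the replicate that stood apart were named after their values were seen. Collagens and lists were chosen with earlier results of these data known. Sex was inferred from Y-linked genes. Coordinates came from Gencode M21 on GRCm38, which held 54723 of the 54752 genes.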

Additional observations from a re-analysis of the deposited data

How the results depend on the processing

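The number of collagens called was repeated under each alternative. In *Gtpbp1*-/- RNA (13) it was 6 with an offset for effective length, 3 in limma on TPM and 14 in DESeq2, and 5 to 14 over libraries left out. These 3 alternatives called 9.08, 8.77 and 17.4% of all genes, and 8.0 to 15.8% were called over libraries left out. In *Gtpbp2*-/- RNA (6) it was 11 in DESeq2, 10 with no count minimum, 3 with a sex term and 2 in limma on TPM, and 2 to 10 over libraries left out. The shares of all genes called were 13.7, 7.92, 4.31 and 3.91%, and 3.92 to 9.81% over libraries left out. In *Gtpbp1*-/- footprints (1) it was 10 in DESeq2, 3 after upper quartile normalization, 2 with filterByExpr, 6 with no count minimum, 2 in a fit of all 9 libraries and 0 with a sex term, and 0 to 4 over libraries left out. The shares of all genes were 2.91, 0.903, 0.832, 1.26, 1.45 and 0.401%, and 0.159 to 1.34% over libraries left out. In *Gtpbp2*-/- footprints (3) it was 0 with a sex term and 1 to 3 over libraries left out. Of all genes, 0.326% were called with a sex term and 0.779 to 4.54% over libraries left out.

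Between the mutants it was 0 in RNA throughout. In footprints (0) it was 6 in DESeq2 and 0 to 1 over libraries left out. The shares of all genes were 0.707%, and up to 0.237% over libraries left out. For translational efficiency (0) DESeq2 gave 1 in *Gtpbp2*-/- and 2 between the mutants, with 0 to 1 in either over libraries left out, and 0 in *Gtpbp1*-/- throughout. DESeq2 called 1.24% of all genes in *Gtpbp2*-/- and 1.17% between the mutants. Over libraries left out the shares reached 1.24% and 1.35%. As stated above, no conclusion is drawn from the *Col7a1* call in *Gtpbp2*-/-.

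The direction of *Lama5* in *Gtpbp1*-/- RNA reversed from 0.58 to -0.60 (adjusted p = 0.138) with an offset for effective length and to -0.33 (adjusted p = 0.488) in limma on TPM. *Gtpbp1* itself, -0.73 in edgeR, was -0.31 (adjusted p = 0.0819) with the offset and -0.14 (adjusted p = 0.419) in limma on TPM.

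The balance of RNA calls over all genes was 1449 higher and 1949 lower in *Gtpbp1*-/-, against 899 and 1332 with the offset, 1837 and 1512 after upper quartile normalization and 1621 and 535 in limma on TPM. In *Gtpbp2*-/- it was 898 and 1248, against 573 and 787, 1074 and 941, and 750 and 221. The median log2FC in limma on TPM was 0.16 in *Gtpbp1*-/- and 0.15 in *Gtpbp2*-/-, where edgeR gave 0.03 in either. Footprint calls in *Gtpbp1*-/- were 80 higher and 24 lower, against 251 and 155 in DESeq2, 89 and 97 without B6J replicate 3, 18 and 4 without replicate 1 and 37 and 4 without replicate 2.

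Replicate numbers did not pair libraries. Of 18 pairs of same-numbered libraries, 5 correlated above 0.1, and 2 of 9 same-numbered RNA and footprint libraries differed in sex. With a replicate block, 8 collagens were called in *Gtpbp1*-/- RNA, 7 in *Gtpbp2*-/- RNA, 1 in *Gtpbp1*-/- footprints and 3 in *Gtpbp2*-/- footprints. In the same order 9.1, 8.57, 0.315 and 3.7% of all genes were called. The *Gtpbp1*-/- footprint call was then *Col1a1* in place of *Col6a3* (adjusted p 0.166). Under the block these were uncalled (adjusted p): *Col9a3* 0.0531, *Col17a1* 0.0794, *Col22a1* 0.0928, *Col23a1* 0.0905, *Col25a1* 0.0578, *Itga1* 0.0573, *Lama4* 0.0954, *Sec24d* 0.0626, *Sparc* 0.144 and *Timp4* 0.111 in *Gtpbp1*-/- RNA, *Col9a1* 0.0654 in *Gtpbp2*-/- RNA (where *Col9a3* and *Col23a1* were gained), *Lama4* 0.0721 and *Omd* 0.103 in *Gtpbp1*-/- footprints and *Lama4* 0.0668 in *Gtpbp2*-/- footprints. The cause was not tested.

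Each group has 3 libraries per assay. Sex is uneven between groups, and all *Gtpbp2*-/- libraries are female. In footprints the sex term leaves B6J replicate 3 alone to compare with them. Whole cerebellum mixes cell types, and collagens with low counts rest on few reads.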
